A study of Mus musculus with 21 samples.

Results

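Hepatocyte-like cells made with the same compounds from 2 kinds of mouse fibroblast were compared by RNA sequencing. NSF-CiHeps, with neonatal skin as the labelled tissue, gave 3 libraries, and C6F5UE-C6F(L)V, with embryonic as the labelled tissue, gave another 3, so that 6 of the 21 libraries of the series entered the comparison. They were chosen by group label alone, and the question is how far the origin of the fibroblast goes with a different outcome of one protocol. Both groups are labelled as wild type and as going from fibroblast to hepatocyte. From day 0 both were kept in a reprogramming medium with 50 ng/ml bFGF and 6 compounds, each with its own target. CHIR99021 (20 µM) blocks GSK3 and thereby turns on Wnt signalling, 616452 (10 µM) blocks the receptor for TGF-beta, Forskolin (50 µM) stimulates adenylyl cyclase and so cAMP, and CH55 (1 µM) activates retinoic acid receptors. UNC0638 (0.05 µM) and EPZ004777 (5 µM) block histone methyltransferases, G9a with GLP in the case of UNC0638 and DOT1L in that of EPZ004777. On day 4 both went into a hepatocyte medium with 1 µM dexamethasone, 10 mM nicotinamide, 10 ng/ml FGF4, 20 ng/ml HGF, 20 ng/ml EGF and 50 µg/ml vitamin C. In that medium CHIR99021, 616452 and Forskolin stayed at their starting doses for 4 days and were then lowered to 3, 2 and 2 µM. The labels give no day of collection, strain, sex or passage, and do not state whether replicates were separate cultures or animals. The p-values rest on a spread between libraries that is pooled over all 21 libraries of the series, and that may be technical. It is not the spread of the 6 compared libraries alone. NSF-CiHeps varied more than C6F5UE-C6F(L)V, which a pooled spread may understate. Untreated neonatal skin fibroblasts were not analysed here. The counts of NSF-CiHeps were deposited in one table and those of C6F5UE-C6F(L)V in another, so origin, table and any difference in preparation between the tables cannot be told apart.

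Hepatocytes fill the blood with albumin, apolipoproteins, clotting factors and carrier proteins, and hold the urea cycle, gluconeogenesis and the breakdown of amino acids. These genes are driven together by a set of transcription factors, among them the nuclear receptor HNF4A, the forkhead factors FOXA1 to FOXA3 and C/EBP factors. The liver and the intestine both arise from endoderm and share several of these factors, while CDX2 sets the intestinal programme. Fibroblasts keep, in culture, patterns of Hox and other homeobox genes that mark the place in the body from which they came.

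Total counts were 12.11 M, 11.48 M and 12.15 M in NSF-CiHeps and 11.16 M, 10.03 M and 9.18 M in C6F5UE-C6F(L)V. Expression levels are given as CPM, which are counts scaled to a common library size with factors from the trimmed mean of M values, always in the order of replicates 1, 2 and 3. The NSF-CiHeps libraries differed more among themselves than the C6F5UE-C6F(L)V libraries did: over the 9947 genes that averaged 10 CPM or more, 423 ranged more than 4-fold within NSF-CiHeps and 29 within C6F5UE-C6F(L)V. Replicate 3 of NSF-CiHeps stood apart, with a root mean square log2 difference of 0.727 and 0.723 from replicates 1 and 2, which differed from each other by 0.553, while the 3 distances within C6F5UE-C6F(L)V ran from 0.334 to 0.349. Results that this library moves are given with and without it. Gene classes also moved with the group. Genes of the mitochondrial genome took 2.34% to 2.69% of counts in NSF-CiHeps and 0.441% to 0.953% in C6F5UE-C6F(L)V, and long non-coding genes took 0.868% to 0.981% in NSF-CiHeps and 2.45% to 2.52% in C6F5UE-C6F(L)V. Of 1891 long non-coding genes tested, 76 were higher and 593 lower in NSF-CiHeps. Gm23935, which the deposited tables list as a miRNA gene of 57 bases, had 980.1, 288 and 389 CPM in NSF-CiHeps, against 12.8, 12678 and 11933 CPM in C6F5UE-C6F(L)V, so that it divided replicate 1 of C6F5UE-C6F(L)V from the other 2. That replicate lay below all NSF-CiHeps libraries, so the groups overlapped. In a fit to nuclear protein-coding genes alone, chosen after seeing the data, 164 of the genes given here kept their direction and side of the threshold and 1 changed sign. Thy1 gained a call (log2 fold change -1.76, edgeR adjusted p = 0.0404), and Krt19 fell short of the fold for one (log2 fold change 0.99, edgeR adjusted p = 0.00455). Gm23935 was called lower in the fit over all 21 libraries, but not in the fit of the 6 libraries alone (log2 fold change -3.88, adjusted p = 0.091). Gm23935 had a log2 fold change of -4.56 without NSF-CiHeps replicate 1.

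A gene was called when the edgeR quasi-likelihood F test gave a Benjamini-Hochberg adjusted p below 0.05 and the log2 fold change, NSF-CiHeps minus C6F5UE-C6F(L)V, was at least 1 in size. Of 18605 genes tested, 2280 were higher in NSF-CiHeps, which is 12.3% of them, and 3008 were lower, which is 16.2%. The median log2 fold change over all genes tested was -0.000454. These shares are the background for the gene lists. Genes of proteins secreted by hepatocytes, with 21 of 23 tested lower, and of the interferon response, with 14 of 18 lower, were lower in NSF-CiHeps. Genes of the cell cycle, with 20 of 25 higher, and of Wnt signalling, with 11 of 15 higher, were higher. Genes of the intestine, of the retinoic acid response and of the Hox clusters were called in both directions. Of 17459 genes above 3 counts in a group, 57.4% did not overlap between the 3 and 3 libraries, so a lack of overlap is common in this comparison.

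**Figure D1:**
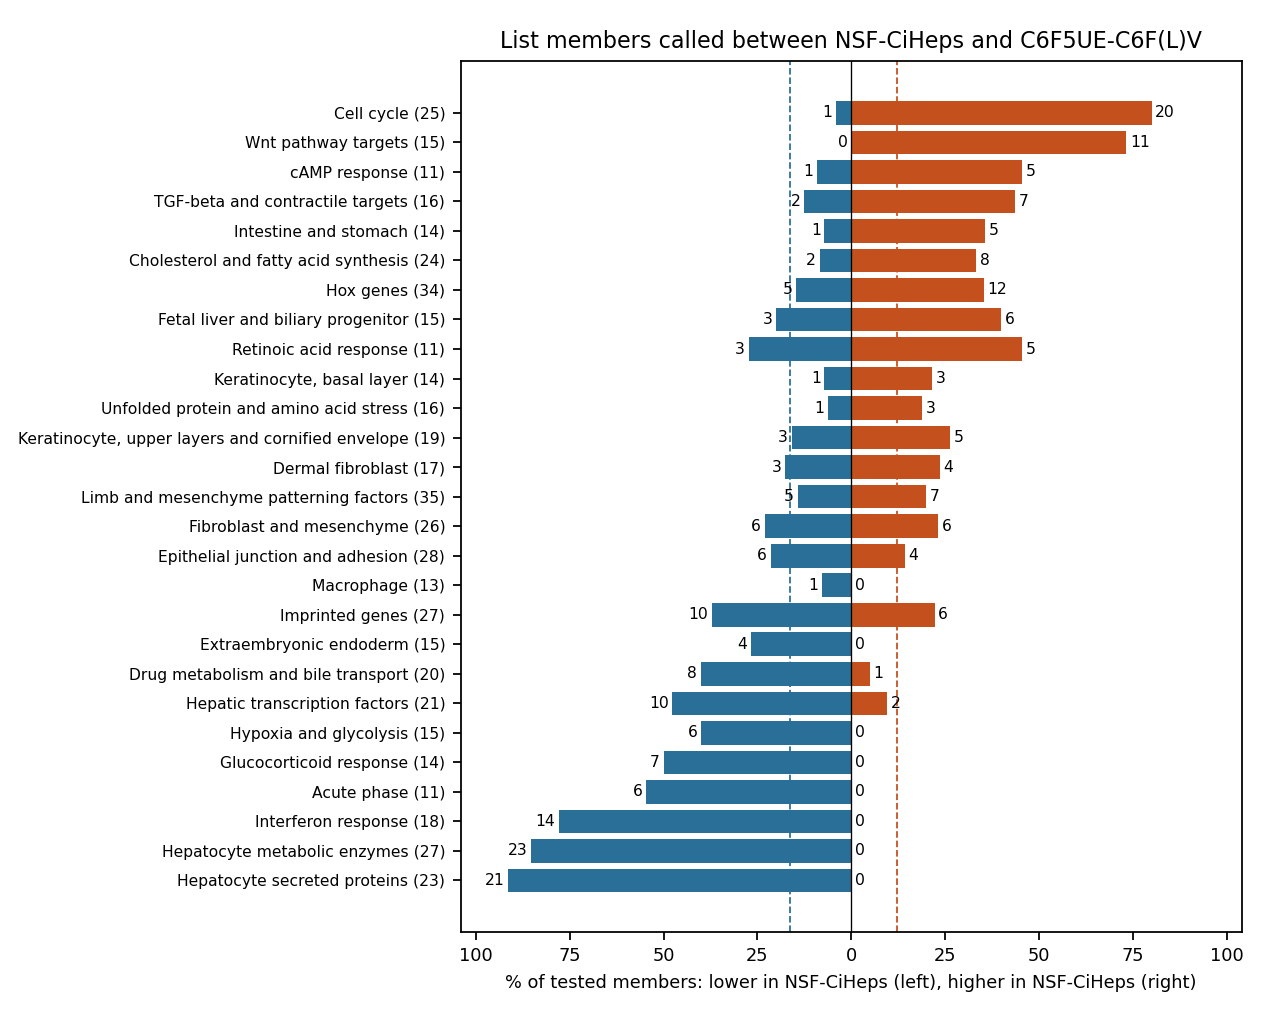
Share of the tested members of each gene list that were lower (left, blue) or higher (right, orange) in NSF-CiHeps than in C6F5UE-C6F(L)V, in percent, for the lists with at least 10 members tested. Numbers at the bars are the genes called, numbers in parentheses the members tested, and dashed lines the background of 16.2% lower and 12.3% higher over all genes. Hepatocyte secreted proteins (21 of 23 lower) and cell cycle genes (20 of 25 higher) lie at the ends.

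Albumin and most other proteins that hepatocytes secrete were far lower in NSF-CiHeps. Alb (ENSMUSG00000029368, chromosome 5, 90460897 to 90476602, plus strand, GRCm38), the main protein of blood plasma, had 420.4, 441 and 54.02 CPM in NSF-CiHeps, against 11864, 7573 and 9383 CPM in C6F5UE-C6F(L)V (log2 fold change -4.98 ± 0.74, adjusted p = 2.71e-05). The groups did not overlap, and replicate 3 was the lowest of the skin-derived libraries. Leaving that library out kept the call. In bulk samples such as these, fewer cells of a type and less RNA per cell cannot be told apart. Of the 23 secreted proteins tested, 21 were lower and the other 2 did not pass, with a median log2 fold change of -4.55. In all 21 the groups did not overlap, as was so for 57.4% of the 17459 genes above 3 counts in a group.

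Among them were members of each plasma protein family. Apoa1, the main protein of high-density lipoprotein, had 1428, 738 and 64.7 CPM in NSF-CiHeps, against 14391, 12160.2 and 11718 CPM in C6F5UE-C6F(L)V (log2 fold change -4.10 ± 0.89, adjusted p = 0.00122). Plasminogen (Plg) had 0, 0.878 and 0 CPM in NSF-CiHeps, against 39.3, 30.8 and 23.2 CPM in C6F5UE-C6F(L)V (log2 fold change -6.77 ± 0.90, adjusted p = 3.05e-05). Reads of Plg were found in 1 of the 3 skin-derived libraries. Antithrombin (Serpinc1) had 0.388, 0.176 and 0.233 CPM in NSF-CiHeps, against 19.8, 16.2 and 21.4 CPM in C6F5UE-C6F(L)V (log2 fold change -6.10 ± 0.47, adjusted p = 2.17e-08). The inhibitor chain Itih3 showed the same order of groups with 6.99, 18.8 and 2.80 CPM in NSF-CiHeps, against 546, 432 and 432 CPM in C6F5UE-C6F(L)V (log2 fold change -5.64 ± 0.65, adjusted p = 1.8e-06). Transthyretin (Ttr), the carrier of thyroid hormone, had 96.7, 217 and 11.4 CPM in NSF-CiHeps, against 774, 573 and 693 CPM in C6F5UE-C6F(L)V, with its lowest level again in replicate 3 (log2 fold change -2.65 ± 1.01, adjusted p = 0.0401). Apob, the structural protein of very-low-density lipoprotein, was above all C6F5UE-C6F(L)V libraries in replicates 1 and 2 of NSF-CiHeps and below them in replicate 3. It had 246, 558 and 45.8 CPM in NSF-CiHeps, against 219, 171 and 157 CPM in C6F5UE-C6F(L)V (log2 fold change 0.64 ± 0.54, adjusted p = 0.352). Itih2 had 62.3, 141 and 45.5 CPM in NSF-CiHeps, against 136, 114 and 139.7 CPM in C6F5UE-C6F(L)V and also overlapped (log2 fold change -0.65 ± 0.51, adjusted p = 0.309). Apoa1 had a log2 fold change of -4.96 without NSF-CiHeps replicate 1. Plg had a log2 fold change of -6.13 without NSF-CiHeps replicate 1 and -6.14 without NSF-CiHeps replicate 3. Plg was at least 267-fold lower without NSF-CiHeps replicate 2. Itih3 had a log2 fold change of -6.59 without NSF-CiHeps replicate 2. Ttr was not called when NSF-CiHeps replicate 1 or 3 or C6F5UE-C6F(L)V replicate 1, 2 or 3 was left out (log2 fold change -2.73 to -2.08, adjusted p from 0.0592 to 0.1). Ttr had a log2 fold change of -3.66 without NSF-CiHeps replicate 2. Apob was called when NSF-CiHeps replicate 3 was left out (log2 fold change 1.18, adjusted p = 0.0167).

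The promoter of Alb is shown because Alb is the standard readout of hepatocyte identity and its promoter carries the CCAAT box, a common promoter element spelt CCAAT. It is taken from RefSeq on GRCm38.p6, plus strand, chr5:90460620-90460919, from 250 bases before to 50 after the start of the gene in RefSeq, which is not the start that the deposited tables give, with the 2 matches in capitals, the first on the strand of the gene and the second on the opposite strand.
Alb: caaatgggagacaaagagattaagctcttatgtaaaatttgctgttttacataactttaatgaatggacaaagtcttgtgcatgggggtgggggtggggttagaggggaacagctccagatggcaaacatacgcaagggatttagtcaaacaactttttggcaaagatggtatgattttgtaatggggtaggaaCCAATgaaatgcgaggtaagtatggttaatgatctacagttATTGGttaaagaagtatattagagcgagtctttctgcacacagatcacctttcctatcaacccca
CCAAT, searched on both strands, was found in promoters of 6 of the 18 secreted protein genes for which RefSeq promoters were matched by symbol, namely Alb, Apoa2, Ahsg, Ambp, Rbp4 and Hpx, and in 37.4% of all 32851 promoters of this length. A gene counted when any of its promoters held the motif, whereas the percentage is over single promoters, so the 2 shares are not like measures. The motif was chosen after the sequence was seen. A match is a description of letters and shows no binding.

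**Figure D2:**
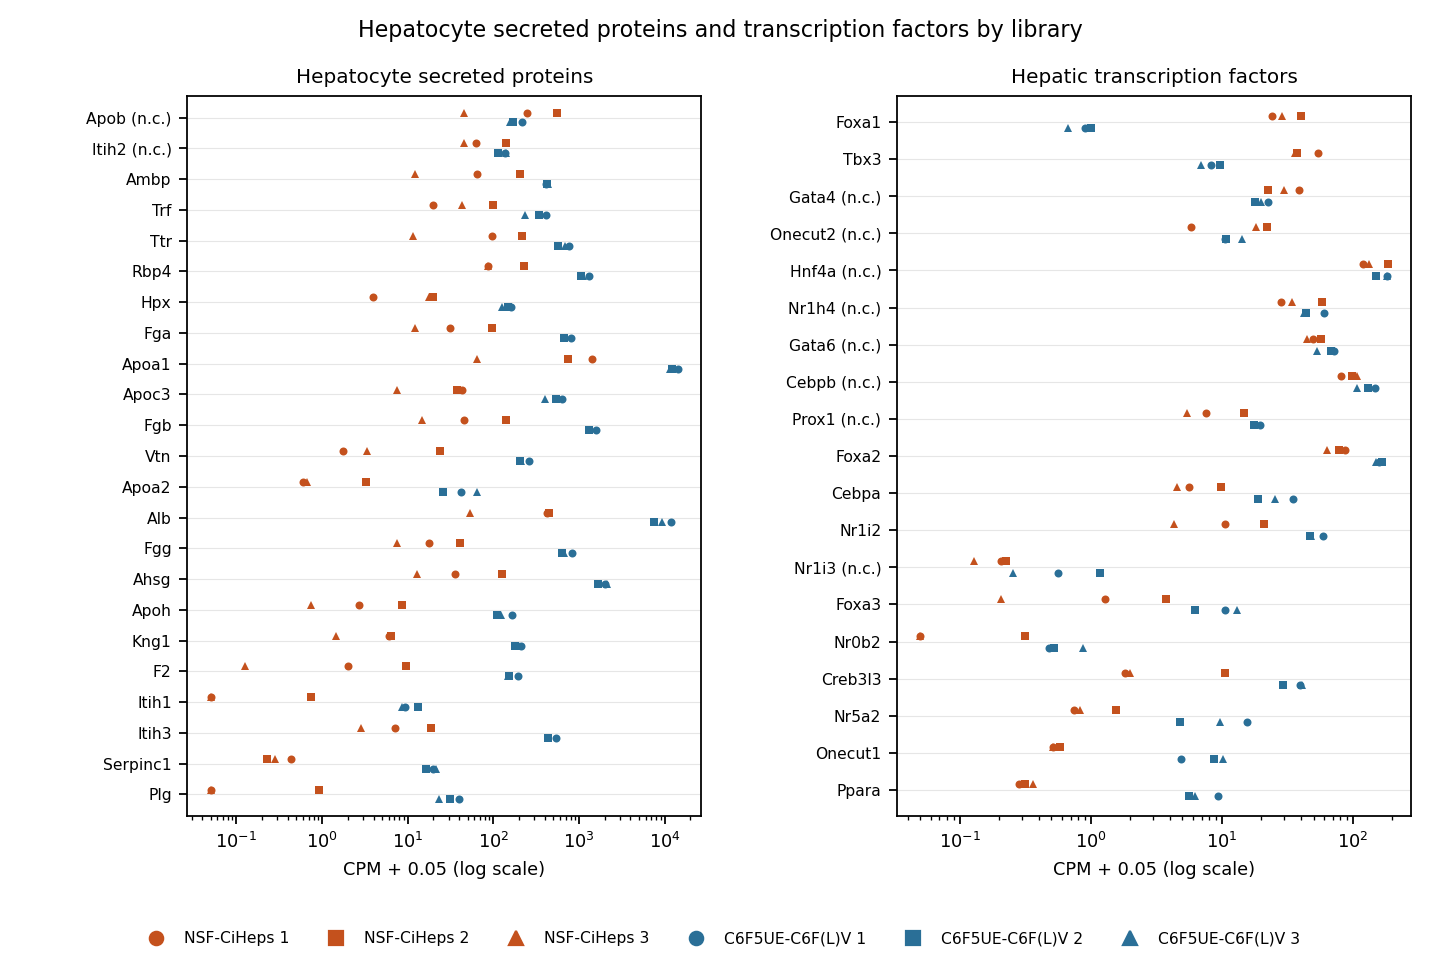
Level of hepatocyte secreted protein genes (left) and hepatic transcription factor genes (right) in each library, in CPM plus 0.05 on a log axis, with NSF-CiHeps in orange above C6F5UE-C6F(L)V in blue. Genes are ordered by log2 fold change, and n.c. marks those not called. Alb lay between 54.0 and 441 CPM in NSF-CiHeps and between 7573 and 11864 CPM in C6F5UE-C6F(L)V, whereas Hnf4a overlapped.

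Enzymes of hepatocyte metabolism were lower as well. Of 27 tested, 23 were lower and 4 did not pass, with a median log2 fold change of -4.25, or -3.84 when genes with few counts are set at their bounds. The lower genes came from several pathways. Mat1a, which makes S-adenosylmethionine in adult liver, had 1.32, 0.790 and 0.544 CPM in NSF-CiHeps, against 251, 153 and 257 CPM in C6F5UE-C6F(L)V (log2 fold change -7.94 ± 0.85, adjusted p = 1.08e-05). Baat, which joins bile acids to amino acids, had 0.233, 0.263 and 0.155 CPM in NSF-CiHeps, against 44.5, 25.7 and 35.8 CPM in C6F5UE-C6F(L)V (log2 fold change -7.28 ± 0.71, adjusted p = 6.67e-07). Bhmt, which remethylates homocysteine, had 0.931, 0 and 0 CPM in NSF-CiHeps, against 50.9, 25.5 and 42.2 CPM in C6F5UE-C6F(L)V (log2 fold change -6.90 ± 0.92, adjusted p = 3.07e-05). In these 3 genes all skin-derived libraries lay below 2 CPM. The urea cycle was uneven. Its entry enzyme Cps1 had 13.7, 7.47 and 7.38 CPM in NSF-CiHeps, against 236, 183 and 195 CPM in C6F5UE-C6F(L)V (log2 fold change -4.42 ± 0.62, adjusted p = 1.47e-05), and the arginase gene Arg1 had 3.18, 0.878 and 1.24 CPM in NSF-CiHeps, against 216, 189 and 162 CPM in C6F5UE-C6F(L)V (log2 fold change -6.71 ± 0.76, adjusted p = 1.38e-06). By contrast Asl, which acts before arginase, had 60.7, 75.4 and 61.2 CPM in NSF-CiHeps, against 71.5, 74.5 and 68.98 CPM in C6F5UE-C6F(L)V and was not called (log2 fold change -0.12 ± 0.14, adjusted p = 0.495), and Ass1 was lower by a smaller margin with 144, 125 and 98.1 CPM in NSF-CiHeps, against 332, 309 and 283 CPM in C6F5UE-C6F(L)V (log2 fold change -1.33 ± 0.18, adjusted p = 1.05e-05). Glutamine synthetase (Glul), which in liver marks the cells around the central vein, had 533, 926 and 926 CPM in NSF-CiHeps, against 486, 435 and 497 CPM in C6F5UE-C6F(L)V. Its groups did not overlap and its adjusted p was below the threshold, but it did not reach the fold needed for a call (log2 fold change 0.75 ± 0.24, adjusted p = 0.0166). Cyp7a1, the rate-limiting enzyme of bile acid synthesis, was at 0 counts in all NSF-CiHeps libraries, against 1.79, 0.851 and 0.825 CPM in C6F5UE-C6F(L)V, so it was at least 14.3-fold lower with a floor of 3 counts over the group. Bhmt had a log2 fold change of -6.28 without NSF-CiHeps replicate 3. Bhmt was at least 319.6-fold lower without NSF-CiHeps replicate 1. Arg1 had a log2 fold change of -7.40 without NSF-CiHeps replicate 1. Glul was called when NSF-CiHeps replicate 1 was left out (log2 fold change 1.02, adjusted p = 0.00205). Cyp7a1 was not called by DESeq2 (log2 fold change -6.30, adjusted p = 0.352). Cyp7a1 was at least 9.33-fold lower without NSF-CiHeps replicate 1 and at least 9.34-fold lower without NSF-CiHeps replicate 3.

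Drug metabolism and bile transport were less uniform. Of 20 genes tested, 1 was higher, 8 were lower and 11 did not pass, against 12.3% higher and 16.2% lower over all genes. The bile salt export pump Abcb11 had 0.931, 1.05 and 0.233 CPM in NSF-CiHeps, against 24.7, 14.1 and 21.8 CPM in C6F5UE-C6F(L)V (log2 fold change -4.76 ± 0.65, adjusted p = 1.17e-05). Slc10a1, the transporter that takes bile salts up from blood, had 0.155, 0.351 and 0 CPM in NSF-CiHeps, against 5.28, 3.97 and 4.64 CPM in C6F5UE-C6F(L)V (log2 fold change -4.73 ± 0.96, adjusted p = 0.00055). The sulfotransferase gene Sult1a1 had 142, 230.1 and 107 CPM in NSF-CiHeps, against 1201, 967 and 987 CPM in C6F5UE-C6F(L)V (log2 fold change -2.72 ± 0.45, adjusted p = 7.4e-05). All 3 were lower without overlap. Some cytochrome P450 genes were not called lower. Cyp3a13 had 125, 188 and 95.5 CPM in NSF-CiHeps, against 144, 121 and 117 CPM in C6F5UE-C6F(L)V (log2 fold change 0.10 ± 0.39, adjusted p = 0.877). Cyp2c29 had 243, 125 and 0.466 CPM in NSF-CiHeps, against 85.6, 55.7 and 67.9 CPM in C6F5UE-C6F(L)V, from the highest level of the 6 libraries in replicate 1 of NSF-CiHeps to the lowest in its replicate 3 (log2 fold change 0.82 ± 1.06, adjusted p = 0.561). Cyp1a1, the classic target of the aryl hydrocarbon receptor, had 1.55, 2.28 and 4.20 CPM in NSF-CiHeps and 0 counts in C6F5UE-C6F(L)V, and was at least 28.6-fold higher. Slc10a1 had a log2 fold change of -4.12 without NSF-CiHeps replicate 3. Slc10a1 was 59.9-fold lower (95% interval 16.3 to 499) without NSF-CiHeps replicate 2. Cyp2c29 was called when NSF-CiHeps replicate 3 was left out (log2 fold change 1.44, adjusted p = 0.00703). Cyp1a1 was at least 18.1-fold higher without C6F5UE-C6F(L)V replicate 1.

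Acute phase genes, which the liver raises in inflammation, were also lower in part, with 6 of 11 called lower, a median log2 fold change of -3.04 and 5 that did not pass. Hamp, which encodes the iron hormone hepcidin, had 0.233, 0 and 0 CPM in NSF-CiHeps, against 79.1, 70.5 and 52.3 CPM in C6F5UE-C6F(L)V. With 3 counts over the NSF-CiHeps libraries, its share of counts was lower by 844-fold (95% interval 288 to 4093). Haptoglobin (Hp) had 16.3, 23.4 and 10.8 CPM in NSF-CiHeps, against 515, 494 and 566 CPM in C6F5UE-C6F(L)V (log2 fold change -4.96 ± 0.51, adjusted p = 4.56e-07). Ceruloplasmin (Cp), the copper carrier of plasma, had 764, 739 and 1088 CPM in NSF-CiHeps, against 597, 511 and 580.4 CPM in C6F5UE-C6F(L)V and was not called (log2 fold change 0.62 ± 0.27, adjusted p = 0.0704). Hamp was at least 544-fold lower without NSF-CiHeps replicate 1 and 551-fold lower (95% interval 188 to 2675) without NSF-CiHeps replicate 3.

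The factors known to drive these genes did not all follow them. Hnf4a (ENSMUSG00000017950, chromosome 2, 163506808 to 163572910, plus strand) had 119, 184 and 132 CPM in NSF-CiHeps, against 182, 149.9 and 183 CPM in C6F5UE-C6F(L)V, and the groups overlapped (log2 fold change -0.24 ± 0.31, adjusted p = 0.552). Of 21 hepatic transcription factors tested, 2 were higher, 10 lower and 9 did not pass, with a median log2 fold change of -1.05. The background was 12.3% higher and 16.2% lower, so only the lower share stood above it. The 3 largest falls were in Ppara, Onecut1 and Nr5a2. Ppara, the fatty acid receptor, had 0.233, 0.263 and 0.311 CPM in NSF-CiHeps, against 9.37, 5.58 and 6.19 CPM in C6F5UE-C6F(L)V (log2 fold change -4.66 ± 0.60, adjusted p = 5.62e-06). Onecut1, also called HNF6, had 0.466, 0.527 and 0.466 CPM in NSF-CiHeps, against 4.85, 8.60 and 10.1 CPM in C6F5UE-C6F(L)V (log2 fold change -3.98 ± 0.74, adjusted p = 0.000242). Nr5a2, a nuclear receptor of bile acid and intestinal gene control, had 0.699, 1.49 and 0.777 CPM in NSF-CiHeps, against 15.6, 4.73 and 9.69 CPM in C6F5UE-C6F(L)V (log2 fold change -3.34 ± 0.58, adjusted p = 0.000139). In each of the 3, all skin-derived libraries lay below all embryo-derived libraries. Foxa2, a forkhead factor that opens liver genes early, had 87.1, 78.9 and 62.96 CPM in NSF-CiHeps, against 157, 167 and 151 CPM in C6F5UE-C6F(L)V (log2 fold change -1.05 ± 0.32, adjusted p = 0.0111), while its relative Foxa1 had 23.9, 40.4 and 28.8 CPM in NSF-CiHeps, against 0.852, 0.945 and 0.619 CPM in C6F5UE-C6F(L)V (log2 fold change 5.24 ± 0.75, adjusted p = 1.68e-05). Tbx3, a T-box factor of the liver bud, had 53.7, 37.4 and 36.1 CPM in NSF-CiHeps, against 8.26, 9.64 and 6.91 CPM in C6F5UE-C6F(L)V (log2 fold change 2.36 ± 0.27, adjusted p = 1.85e-06). Foxa1 and Tbx3 were thus higher and Foxa2 lower, each without overlap. Foxa2 was not called when NSF-CiHeps replicate 3 or C6F5UE-C6F(L)V replicate 2 was left out (log2 fold change -0.97 to -0.89, adjusted p from 0.0356 to 0.0476). Foxa2 was not called with no filter on low counts (log2 fold change -0.97, adjusted p = 0.0109).

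Genes of the fetal liver and of biliary progenitors moved both ways, with 6 of 15 higher, 3 lower and 6 that did not pass. The background was 12.3% higher and 16.2% lower, so the lower share was near it. Afp, the fetal counterpart of albumin, had 3.34, 17.2 and 0.0777 CPM in NSF-CiHeps, against 34.8, 44.1 and 33.8 CPM in C6F5UE-C6F(L)V (log2 fold change -2.47 ± 0.71, adjusted p = 0.008). Afp varied widely between the skin-derived libraries, all of which lay below the embryo-derived ones. Epcam, a surface protein of liver progenitors and other epithelia, had 141, 189.6 and 198 CPM in NSF-CiHeps, against 55.3, 68.1 and 50.8 CPM in C6F5UE-C6F(L)V (log2 fold change 1.60 ± 0.39, adjusted p = 0.00237). Sox9, a factor of bile duct cells, had 47.2, 55.2 and 88.7 CPM in NSF-CiHeps, against 20.7, 27.1 and 14.1 CPM in C6F5UE-C6F(L)V (log2 fold change 1.62 ± 0.29, adjusted p = 0.000192). Prom1, which encodes CD133, had 428, 222 and 107 CPM in NSF-CiHeps, against 19.8, 31.7 and 31.5 CPM in C6F5UE-C6F(L)V (log2 fold change 3.19 ± 0.52, adjusted p = 6.42e-05). Krt19, a keratin of bile ducts with the most counts of the list, had 2957, 3445 and 2296 CPM in NSF-CiHeps, against 1496, 1685 and 1065 CPM in C6F5UE-C6F(L)V (log2 fold change 1.03 ± 0.27, adjusted p = 0.00376). These 4 were higher without overlap. Krt7, another duct keratin, had 1488, 799 and 109 CPM in NSF-CiHeps, against 2158, 2220.4 and 1833 CPM in C6F5UE-C6F(L)V and was not called (log2 fold change -1.37 ± 0.58, adjusted p = 0.0576), with its lowest level in replicate 3 of NSF-CiHeps. Afp was not called in the fit of the 6 libraries alone (log2 fold change -2.46, adjusted p = 0.0791). Afp had a log2 fold change of -4.46 without NSF-CiHeps replicate 2 and -1.85 without NSF-CiHeps replicate 3. Krt19 was not called when NSF-CiHeps replicate 2 or C6F5UE-C6F(L)V replicate 3 was left out (log2 fold change 0.86 to 0.89, adjusted p from 0.0183 to 0.0255). Krt7 was called when NSF-CiHeps replicate 1 was left out (log2 fold change -2.16, adjusted p = 0.00874). Krt7 was called by DESeq2 (log2 fold change -1.40, adjusted p = 0.0288) and without C6FAE-C6F(L) replicate 4 (log2 fold change -1.38, adjusted p = 0.0364).

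Both groups expressed epithelial genes. Cdh1, which encodes E-cadherin, had 644, 442 and 154 CPM in NSF-CiHeps, against 328, 342 and 284 CPM in C6F5UE-C6F(L)V, and the groups overlapped (log2 fold change 0.38 ± 0.34, adjusted p = 0.374). Krt18 had 1837, 3243 and 943 CPM in NSF-CiHeps, against 2375, 2555 and 2157 CPM in C6F5UE-C6F(L)V (log2 fold change -0.23 ± 0.30, adjusted p = 0.55). Of 28 genes of epithelial junctions and adhesion, 4 were higher, 6 were lower and 18 did not pass, near the background of 12.3% and 16.2%. The desmosome genes Dsp and Dsg2 moved apart. Dsp had 219, 206 and 188 CPM in NSF-CiHeps, against 74.9, 69.9 and 50.6 CPM in C6F5UE-C6F(L)V (log2 fold change 1.65 ± 0.25, adjusted p = 3.84e-05), and Dsg2 had 14.5, 16.3 and 19.7 CPM in NSF-CiHeps, against 73.3, 71.2 and 77.3 CPM in C6F5UE-C6F(L)V (log2 fold change -2.13 ± 0.28, adjusted p = 6.75e-06). The splicing regulator Esrp2 had 85.1, 41.7 and 19.7 CPM in NSF-CiHeps, against 161, 146 and 152 CPM in C6F5UE-C6F(L)V (log2 fold change -1.65 ± 0.33, adjusted p = 0.000439). Without NSF-CiHeps replicate 3, 7 members were higher, and without its replicate 1, 10 were lower, so the split of this list depends on single libraries. Esrp2 had a log2 fold change of -2.28 without NSF-CiHeps replicate 1.

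Several genes that define intestinal epithelium were higher in the skin-derived cells, by amounts that differed between their libraries. Cdx2 (ENSMUSG00000029646, chromosome 5, 147300805 to 147307270, minus strand), the homeobox factor that specifies intestinal epithelium, had 42.2, 90.6 and 246 CPM in NSF-CiHeps, against 3.75, 2.36 and 2.58 CPM in C6F5UE-C6F(L)V (log2 fold change 5.43 ± 0.63, adjusted p = 1.24e-05). Replicate 3, lowest in Alb, was highest in Cdx2. Cdh17, the cadherin of the intestinal epithelium, had 97.4, 137 and 218 CPM in NSF-CiHeps, against 5.03, 4.82 and 2.89 CPM in C6F5UE-C6F(L)V (log2 fold change 5.14 ± 0.37, adjusted p = 1.12e-08). Lgals4, a galectin of the digestive tract, had 397, 1106 and 1956 CPM in NSF-CiHeps, against 195, 181 and 188 CPM in C6F5UE-C6F(L)V (log2 fold change 2.62 ± 0.48, adjusted p = 0.000221). Vil1, which bundles actin in microvilli, had 171, 362 and 292 CPM in NSF-CiHeps, against 111, 127 and 111 CPM in C6F5UE-C6F(L)V (log2 fold change 1.24 ± 0.30, adjusted p = 0.00202). Cdx2, Cdh17 and Lgals4 were lowest in replicate 1 and highest in replicate 3, and all 4 genes were without overlap between the groups. Of 14 intestine and stomach genes tested, 5 were higher, 1 was lower and 8 did not pass. Among all genes tested, 12.3% were higher and 16.2% lower. Cdx2 had a log2 fold change of 4.54 without NSF-CiHeps replicate 3. Vil1 was not called when NSF-CiHeps replicate 2 was left out (log2 fold change 0.99, adjusted p = 0.0144).

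The list did not move as a whole. Tff3, the trefoil peptide of intestinal goblet cells and bile ducts, had 17.4, 319.8 and 15.7 CPM in NSF-CiHeps, against 4175, 3844 and 3831 CPM in C6F5UE-C6F(L)V (log2 fold change -5.07 ± 1.19, adjusted p = 0.0022), the reverse order of the groups. Replicate 2 held far more of it than replicates 1 and 3. DESeq2 gave no adjusted p for Tff3. The stomach gene Gkn1, encoding a gastrokine, had 585, 758 and 125 CPM in NSF-CiHeps, against 142, 144 and 147 CPM in C6F5UE-C6F(L)V and was not called (log2 fold change 1.76 ± 0.76, adjusted p = 0.0677). Gkn2, its relative, had 632, 812 and 130.3 CPM in NSF-CiHeps, against 1089, 1049 and 757 CPM in C6F5UE-C6F(L)V (log2 fold change -0.88 ± 0.76, adjusted p = 0.367). Muc5ac, the mucin of the stomach surface, had 17.5, 26.5 and 1.87 CPM in NSF-CiHeps, against 0.681, 1.04 and 1.86 CPM in C6F5UE-C6F(L)V (log2 fold change 3.69 ± 0.76, adjusted p = 0.000654). Replicate 3 of NSF-CiHeps lay only just above the highest C6F5UE-C6F(L)V library. Muc5ac was thus called, and Gkn1 and Gkn2 were not. With NSF-CiHeps replicate 2 left out, 3 members of the list were called lower in place of 1. Tff3 had a log2 fold change of -7.90 without NSF-CiHeps replicate 2. Gkn1 was called when NSF-CiHeps replicate 3 was left out (log2 fold change 2.26, adjusted p = 0.0193). Gkn1 was called with no filter on low counts (log2 fold change 1.84, adjusted p = 0.0334) and in the fit of the 6 libraries alone (log2 fold change 1.77, adjusted p = 0.0294). Muc5ac had a log2 fold change of 3.03 without NSF-CiHeps replicate 2.

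**Figure D3:**
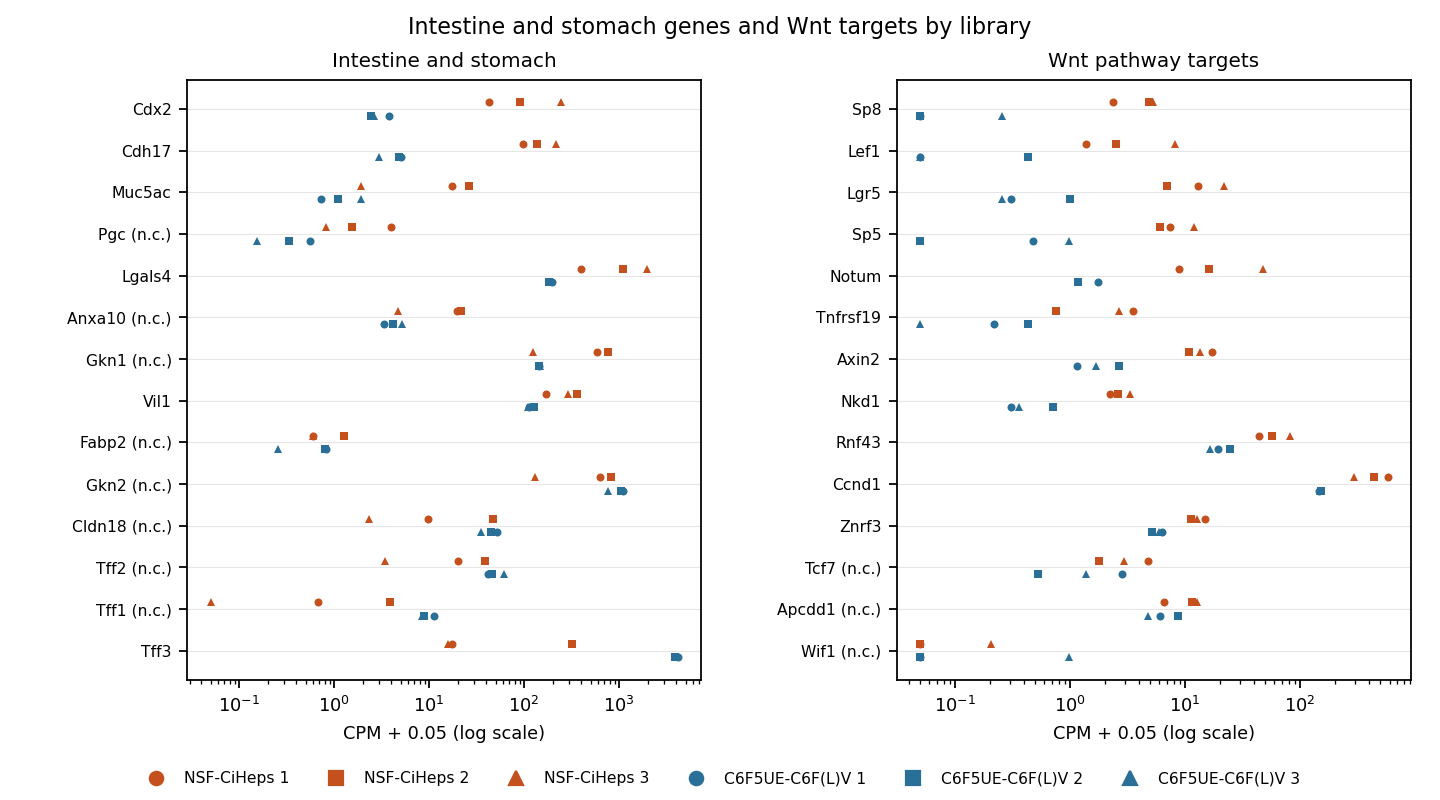
Level of each intestine and stomach gene (left) and Wnt target gene (right) with more than 3 counts in a group, in CPM plus 0.05 on a log axis, with NSF-CiHeps in orange above C6F5UE-C6F(L)V in blue. Genes are ordered by log2 fold change, and n.c. marks those not called. Cdx2 lay between 42.2 and 246 CPM in NSF-CiHeps and between 2.36 and 3.75 CPM in C6F5UE-C6F(L)V, and Axin2 at 10.8 to 17.2 CPM in NSF-CiHeps and 1.11 to 2.65 CPM in C6F5UE-C6F(L)V.

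The 12 largest rises among genes above 10 CPM whose groups did not overlap are given next. Isx, an intestine-specific homeobox factor, had 15.6, 25.8 and 88.6 CPM in NSF-CiHeps, against 0.426, 0 and 0.206 CPM in C6F5UE-C6F(L)V (log2 fold change 7.57 ± 0.85, adjusted p = 4.1e-06). Cftr, the chloride channel of secretory epithelia, had 46.96, 40.3 and 79.4 CPM in NSF-CiHeps, against 0.0852, 0.0945 and 0.206 CPM in C6F5UE-C6F(L)V (log2 fold change 8.67 ± 0.70, adjusted p = 3.57e-08). Olfm4, a marker of intestinal crypt stem cells, had 5.59, 16.9 and 18.4 CPM in NSF-CiHeps, against 0, 0.189 and 0 CPM in C6F5UE-C6F(L)V and a share of counts higher by 216-fold (95% interval 59.5 to 1788). In all 3, replicate 3 was the highest library. Car1, a carbonic anhydrase abundant in colon, was at 0 counts in C6F5UE-C6F(L)V and had 5.90, 7.11 and 247 CPM in NSF-CiHeps, so it was at least 925-fold higher, mainly through replicate 3. Mep1a, a brush border protease, had 16.5, 10.3 and 8.24 CPM in NSF-CiHeps, against 0, 0 and 0.206 CPM in C6F5UE-C6F(L)V, a share of counts higher by 188-fold (95% interval 51.6 to 1554). Krt4, a keratin of stratified lining epithelia such as the oesophagus, had 181, 336 and 63.6 CPM in NSF-CiHeps, against 0.256, 0 and 0.722 CPM in C6F5UE-C6F(L)V (log2 fold change 9.22 ± 1.53, adjusted p = 0.000205). Dio3, which inactivates thyroid hormone, had 151, 57.1 and 396 CPM in NSF-CiHeps, against 1.36, 0.756 and 1.13 CPM in C6F5UE-C6F(L)V (log2 fold change 7.52 ± 0.63, adjusted p = 5.02e-08). Clca3b, Mcpt2 and Tfap2b, 3 further genes of the set, were at 0 counts in C6F5UE-C6F(L)V. Clca3b, of a family of chloride channel regulators, had 28.02, 59.1 and 29.6 CPM in NSF-CiHeps and was at least 415-fold higher. Mcpt2, a protease gene named for mast cells, had 15.2, 35.6 and 23.8 CPM in NSF-CiHeps and was at least 265-fold higher. Both have near relatives among which reads may be split. Tfap2b, a transcription factor gene of the AP-2 family, had 7.61, 25.9 and 32.3 CPM in NSF-CiHeps and was at least 234-fold higher. Nat8l, which makes N-acetylaspartate, had 4.42, 24.8 and 69.3 CPM in NSF-CiHeps, against 0, 0.473 and 0 CPM in C6F5UE-C6F(L)V (log2 fold change 7.61 ± 1.07, adjusted p = 1.45e-05), and Stra6 is given with the retinoic acid genes. Isx had a log2 fold change of 6.55 without NSF-CiHeps replicate 3. Isx was 446-fold higher (95% interval 123 to 3689) without C6F5UE-C6F(L)V replicate 1. Cftr was 627-fold higher (95% interval 173 to 5180.1) without C6F5UE-C6F(L)V replicate 3. Olfm4 was 137-fold higher (95% interval 37.7 to 1133) without C6F5UE-C6F(L)V replicate 1 and at least 97.4-fold higher without C6F5UE-C6F(L)V replicate 2. Car1 was at least 69.4-fold higher without NSF-CiHeps replicate 3 and at least 586-fold higher without C6F5UE-C6F(L)V replicate 1. Mep1a was 119-fold higher (95% interval 32.7 to 984) without C6F5UE-C6F(L)V replicate 1 and at least 86.7-fold higher without C6F5UE-C6F(L)V replicate 3. Krt4 had a log2 fold change of 8.55 without NSF-CiHeps replicate 2. Krt4 was 1397-fold higher (95% interval 478 to 6776) without C6F5UE-C6F(L)V replicate 3. Dio3 had a log2 fold change of 6.61 without NSF-CiHeps replicate 3. Clca3b was at least 263-fold higher without C6F5UE-C6F(L)V replicate 1. Mcpt2 was at least 168-fold higher without C6F5UE-C6F(L)V replicate 1. Tfap2b was at least 148-fold higher without C6F5UE-C6F(L)V replicate 1. Nat8l had a log2 fold change of 6.47 without NSF-CiHeps replicate 3.

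The 12 largest falls by the same rule follow. Aspg, an asparaginase, had 0.233, 1.23 and 0.700 CPM in NSF-CiHeps, against 254, 181 and 152 CPM in C6F5UE-C6F(L)V (log2 fold change -8.10 ± 0.75, adjusted p = 1.43e-07). The glucagon receptor gene Gcgr had 0, 0 and 0.0777 CPM in NSF-CiHeps, against 30.7, 23.6 and 12.9 CPM in C6F5UE-C6F(L)V, a share of counts lower by 852-fold (95% interval 153 to 33714). Apoa5, an apolipoprotein that lowers plasma triglyceride, had 0.0776, 0 and 0.0777 CPM in NSF-CiHeps, against 23.3, 21.2 and 13.2 CPM in C6F5UE-C6F(L)V, a share of counts lower by 362-fold (95% interval 99.9 to 2999). Rarres2, encoding the adipokine chemerin, had 0, 0.439 and 0 CPM in NSF-CiHeps, against 44.97, 35.3 and 34.8 CPM in C6F5UE-C6F(L)V (log2 fold change -8.03 ± 0.86, adjusted p = 7.83e-07). These genes were at or near 0 in all skin-derived libraries. Slc17a2, of a phosphate transporter family, was at 0 counts in NSF-CiHeps, against 14.1, 9.36 and 15.4 CPM in C6F5UE-C6F(L)V, and at least 160.3-fold lower. Sprr2f, a cornified envelope gene of a family with near-identical members, had 0.310, 0.351 and 0.233 CPM in NSF-CiHeps, against 135, 167 and 81.5 CPM in C6F5UE-C6F(L)V (log2 fold change -8.70 ± 0.77, adjusted p = 4.06e-07). H2-Q10, a class I molecule of the same kind of family, had 0, 0.0878 and 0.544 CPM in NSF-CiHeps, against 67.9, 54.2 and 73.6 CPM in C6F5UE-C6F(L)V (log2 fold change -8.17 ± 0.69, adjusted p = 5.44e-08). The counts of both are uncertain for that reason. Hamp is given with the acute phase genes, and Angptl7, Defb1, Spink1 and Apof made up the rest, with 1, 1, 3 and 1 counts over the skin-derived libraries. The share of counts of Angptl7 was lower by 1029.8-fold (95% interval 184 to 40722) and that of Defb1 by 661-fold (95% interval 118 to 26155). For Spink1 it was lower by 504-fold (95% interval 172 to 2448) and for Apof by 377-fold (95% interval 67.2 to 14933). In each of the 12 genes the NSF-CiHeps libraries lay below 2 CPM. Aspg had a log2 fold change of -8.68 without NSF-CiHeps replicate 2. Gcgr was 557-fold lower (95% interval 99.6 to 22017) without NSF-CiHeps replicate 1 and at least 181-fold lower without NSF-CiHeps replicate 3. Rarres2 had a log2 fold change of -7.41 without NSF-CiHeps replicate 1 and -7.42 without NSF-CiHeps replicate 3. Slc17a2 was at least 105-fold lower without NSF-CiHeps replicate 1 and at least 105-fold lower without NSF-CiHeps replicate 3. H2-Q10 had a log2 fold change of -7.54 without NSF-CiHeps replicate 1. H2-Q10 was 1579.5-fold lower (95% interval 283 to 62418) without NSF-CiHeps replicate 3. Angptl7 was 673-fold lower (95% interval 120.4 to 26594) without NSF-CiHeps replicate 1, at least 239-fold lower without NSF-CiHeps replicate 2 and 673-fold lower (95% interval 120.5 to 26613) without NSF-CiHeps replicate 3. Defb1 was 432-fold lower (95% interval 77.2 to 17081) without NSF-CiHeps replicate 1, at least 153-fold lower without NSF-CiHeps replicate 2 and 432-fold lower (95% interval 77.2 to 17094) without NSF-CiHeps replicate 3. Spink1 was 329-fold lower (95% interval 112 to 1598) without NSF-CiHeps replicate 1 and 329-fold lower (95% interval 112 to 1599.6) without NSF-CiHeps replicate 3. Apof was at least 82.7-fold lower without NSF-CiHeps replicate 1 and 246-fold lower (95% interval 43.9 to 9759) without NSF-CiHeps replicate 3.

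Targets of the pathways that the compounds act on were compared next. Wnt targets were higher, with 11 of 15 tested called higher, a median log2 fold change of 2.68 and 4 that did not pass, against 12.3% higher over all genes. Axin2, a feedback inhibitor and common readout of Wnt signalling, had 17.2, 10.8 and 13.4 CPM in NSF-CiHeps, against 1.11, 2.65 and 1.65 CPM in C6F5UE-C6F(L)V (log2 fold change 2.94 ± 0.26, adjusted p = 9.55e-08). Notum, a secreted enzyme that inactivates Wnt proteins, had 8.85, 15.98 and 47.6 CPM in NSF-CiHeps, against 1.70, 1.13 and 1.13 CPM in C6F5UE-C6F(L)V (log2 fold change 4.16 ± 0.51, adjusted p = 3.52e-06). Lgr5, the R-spondin receptor of intestinal stem cells, had 12.9, 6.94 and 21.8 CPM in NSF-CiHeps, against 0.256, 0.945 and 0.206 CPM in C6F5UE-C6F(L)V (log2 fold change 4.86 ± 0.54, adjusted p = 1.11e-06). Sp5, a transcription factor and direct Wnt target, had 7.37, 6.06 and 11.97 CPM in NSF-CiHeps, against 0.426, 0 and 0.928 CPM in C6F5UE-C6F(L)V (log2 fold change 4.23 ± 0.56, adjusted p = 1.52e-05). Lef1, which acts with beta-catenin on DNA, had 1.32, 2.46 and 8.16 CPM in NSF-CiHeps, against 0, 0.378 and 0 CPM in C6F5UE-C6F(L)V (log2 fold change 4.88 ± 0.82, adjusted p = 9.86e-05). Ccnd1, a cell cycle gene as well and the member with the most counts, had 580.1, 437 and 297 CPM in NSF-CiHeps, against 145, 153 and 149 CPM in C6F5UE-C6F(L)V (log2 fold change 1.56 ± 0.30, adjusted p = 0.000366). In each of these 6 genes the groups did not overlap. Notum had a log2 fold change of 3.24 without NSF-CiHeps replicate 3. Lgr5 had a log2 fold change of 5.88 without C6F5UE-C6F(L)V replicate 2. Sp5 had a log2 fold change of 5.18 without C6F5UE-C6F(L)V replicate 3. Lef1 had a log2 fold change of 3.83 without NSF-CiHeps replicate 3.

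The promoter of Sp5 (RefSeq, GRCm38.p6, plus strand, chr2:70474673-70474972) is shown for its match to the TCF/LEF motif CTTTGAT, in capitals.
Sp5: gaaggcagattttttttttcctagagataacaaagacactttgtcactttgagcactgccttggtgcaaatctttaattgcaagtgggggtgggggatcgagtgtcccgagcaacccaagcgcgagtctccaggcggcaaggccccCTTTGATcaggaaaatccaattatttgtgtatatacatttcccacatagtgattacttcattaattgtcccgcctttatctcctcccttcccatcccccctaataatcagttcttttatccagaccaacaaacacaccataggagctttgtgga
CTTTGAT was found on either strand in promoters of 2 of the 10 Wnt target genes with a matched promoter, Sp5 and Tnfrsf19, and in 3.73% of all promoters of this length. As for CCAAT, any promoter of a gene could count, whereas the percentage is over single promoters.

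The retinoic acid list was divided, with 5 of 11 genes higher, 3 lower and 3 that did not pass. All genes together gave 12.3% higher and 16.2% lower. Stra6, the receptor through which cells take up retinol, had 201, 188 and 129 CPM in NSF-CiHeps, against 1.36, 0.662 and 1.44 CPM in C6F5UE-C6F(L)V (log2 fold change 7.21 ± 0.81, adjusted p = 1.98e-06). Cyp26b1, an enzyme that breaks down retinoic acid, had 31.6, 19.7 and 11.6 CPM in NSF-CiHeps, against 0.596, 1.04 and 1.34 CPM in C6F5UE-C6F(L)V (log2 fold change 4.41 ± 0.40, adjusted p = 1.25e-07). Rdh10, which makes the precursor retinal, had 381, 286 and 134 CPM in NSF-CiHeps, against 32.7, 34.4 and 24.6 CPM in C6F5UE-C6F(L)V (log2 fold change 3.12 ± 0.32, adjusted p = 5.44e-07). Other genes of the same steps were lower. Cyp26a1, the other main degrading enzyme, had 0.0776, 0 and 0.0777 CPM in NSF-CiHeps, against 9.54, 15.1 and 10.1 CPM in C6F5UE-C6F(L)V, a share of counts lower by 215-fold (95% interval 58.98 to 1778). Lrat, which stores retinol as esters, was at 0 counts in NSF-CiHeps and had 2.30, 1.70 and 0.825 CPM in C6F5UE-C6F(L)V, at least 19.9-fold lower. Rarb, the receptor gene that retinoic acid itself induces, had 5.67, 2.63 and 4.12 CPM in NSF-CiHeps, against 0.426, 0.378 and 1.24 CPM in C6F5UE-C6F(L)V (log2 fold change 2.63 ± 0.39, adjusted p = 2.64e-05). It was higher without overlap. Lrat was at least 13.004-fold lower without NSF-CiHeps replicate 1 and at least 13.01-fold lower without NSF-CiHeps replicate 3. Rarb had a log2 fold change of 3.33 without C6F5UE-C6F(L)V replicate 3.

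Of 16 TGF-beta and contractile targets, 7 were higher, 2 lower and 7 did not pass. The background was 12.3% higher and 16.2% lower, so only the higher share stood above it. Tgfbi, named for its induction by TGF-beta, had 19.1, 13.9 and 132 CPM in NSF-CiHeps, against 1.11, 1.42 and 0.722 CPM in C6F5UE-C6F(L)V (log2 fold change 5.65 ± 0.77, adjusted p = 1.08e-05). The smooth muscle actin gene Acta2 had 47.3, 84.2 and 206 CPM in NSF-CiHeps, against 19.3, 17.1 and 15.1 CPM in C6F5UE-C6F(L)V (log2 fold change 2.71 ± 0.48, adjusted p = 0.000162). Myl9, a light chain of smooth muscle myosin, had 8.07, 34.3 and 54.6 CPM in NSF-CiHeps, against 1.53, 1.70 and 0.619 CPM in C6F5UE-C6F(L)V (log2 fold change 4.62 ± 0.63, adjusted p = 9.82e-06). All 3 were highest in replicate 3. Cyr61, a secreted matrix protein also known as CCN1, had 326, 323 and 323 CPM in NSF-CiHeps, against 382, 455 and 276 CPM in C6F5UE-C6F(L)V (log2 fold change -0.20 ± 0.26, adjusted p = 0.568). In the fit of the 6 libraries alone 2 members lost the call of lower. Tgfbi had a log2 fold change of 3.95 without NSF-CiHeps replicate 3. Acta2 had a log2 fold change of 1.97 without NSF-CiHeps replicate 3.

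Of 11 cAMP response genes, 5 were higher and 1 was lower, against 12.3% higher and 16.2% lower over all genes. Pde10a, a phosphodiesterase that degrades cAMP, had 29.3, 22.4 and 61.5 CPM in NSF-CiHeps, against 9.20, 11.7 and 9.79 CPM in C6F5UE-C6F(L)V (log2 fold change 1.88 ± 0.37, adjusted p = 0.000376). Ppargc1a, a coactivator of gluconeogenic and mitochondrial genes, had 27.3, 18.01 and 14.5 CPM in NSF-CiHeps, against 6.56, 7.56 and 5.57 CPM in C6F5UE-C6F(L)V (log2 fold change 1.60 ± 0.32, adjusted p = 0.000541). The immediate early gene Fos had 27.2, 29.9 and 34.7 CPM in NSF-CiHeps, against 289.9, 307 and 126 CPM in C6F5UE-C6F(L)V (log2 fold change -2.98 ± 0.26, adjusted p = 6.75e-08). Without NSF-CiHeps replicate 3, 3 members were higher, and without its replicate 2, 2 were lower.

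The medium held dexamethasone, and of 14 glucocorticoid response genes 7 were lower and 7 did not pass, with a median log2 fold change of -1.04. Tat, the hormone-induced liver enzyme of tyrosine breakdown, had 4.27, 1.41 and 2.18 CPM in NSF-CiHeps, against 56.8, 36.1 and 58.4 CPM in C6F5UE-C6F(L)V (log2 fold change -4.25 ± 0.59, adjusted p = 2.2e-05), and it is also counted among the metabolic enzymes. Mt1, a metallothionein, had 578, 1344 and 1669.8 CPM in NSF-CiHeps, against 4512, 4674 and 4172 CPM in C6F5UE-C6F(L)V (log2 fold change -1.89 ± 0.33, adjusted p = 0.00015). Both were lower in all skin-derived libraries. Errfi1, an inhibitor of the EGF receptor, had 259, 279.7 and 386 CPM in NSF-CiHeps, against 1007, 884 and 729.7 CPM in C6F5UE-C6F(L)V (log2 fold change -1.50 ± 0.17, adjusted p = 1.41e-06). Fkbp5, a cochaperone and general glucocorticoid target, had 510.3, 903 and 1059.9 CPM in NSF-CiHeps, against 954, 889 and 843 CPM in C6F5UE-C6F(L)V, with overlap of the groups (log2 fold change -0.12 ± 0.22, adjusted p = 0.687).

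Genes of cell division were higher in NSF-CiHeps. Mki67, which encodes the proliferation marker Ki-67, had 79.9, 77.9 and 57.2 CPM in NSF-CiHeps, against 4.51, 5.77 and 7.22 CPM in C6F5UE-C6F(L)V (log2 fold change 3.62 ± 0.18, adjusted p = 4.91e-10). Cenpf, a kinetochore protein, had 27.6, 21.5 and 20.1 CPM in NSF-CiHeps, against 2.04, 1.89 and 1.24 CPM in C6F5UE-C6F(L)V (log2 fold change 3.72 ± 0.29, adjusted p = 2.13e-08). Top2a, the topoisomerase that untangles chromosomes, had 150.0, 97.6 and 119 CPM in NSF-CiHeps, against 18.6, 11.6 and 18.4 CPM in C6F5UE-C6F(L)V (log2 fold change 2.92 ± 0.20, adjusted p = 6.65e-09). Of 25 cell cycle genes, 20 were higher, 1 was lower and 4 did not pass, with a median log2 fold change of 1.70. The exception was Rrm2, a subunit of ribonucleotide reductase, with 109, 138 and 99.2 CPM in NSF-CiHeps, against 259, 280.3 and 213 CPM in C6F5UE-C6F(L)V (log2 fold change -1.12 ± 0.14, adjusted p = 3.12e-06). Rrm2 thus went against the rest of the list, at the edge of the fold needed for a call. Pcna, the sliding clamp of DNA replication, had 123, 136 and 105 CPM in NSF-CiHeps, against 97.6, 98.5 and 115 CPM in C6F5UE-C6F(L)V (log2 fold change 0.23 ± 0.11, adjusted p = 0.114), and Plk1, the mitotic kinase, had 49.5, 37.1 and 37.5 CPM in NSF-CiHeps, against 7.41, 6.33 and 5.67 CPM in C6F5UE-C6F(L)V (log2 fold change 2.67 ± 0.19, adjusted p = 8.81e-09). Pcna was not called and Plk1 was. Of 6 CDK inhibitor genes, edgeR called 0, DESeq2 called 0, and 3 had an unadjusted p under 0.05. Cdkn1a, which encodes p21, had 234, 306 and 234 CPM in NSF-CiHeps, against 248, 284 and 199 CPM in C6F5UE-C6F(L)V (log2 fold change 0.08 ± 0.19, adjusted p = 0.759). Rrm2 was not called when NSF-CiHeps replicate 3 or C6F5UE-C6F(L)V replicate 2 was left out (log2 fold change -0.99 to -0.98, adjusted p from 3.9e-05 to 4.09e-05).

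**Figure D4:**
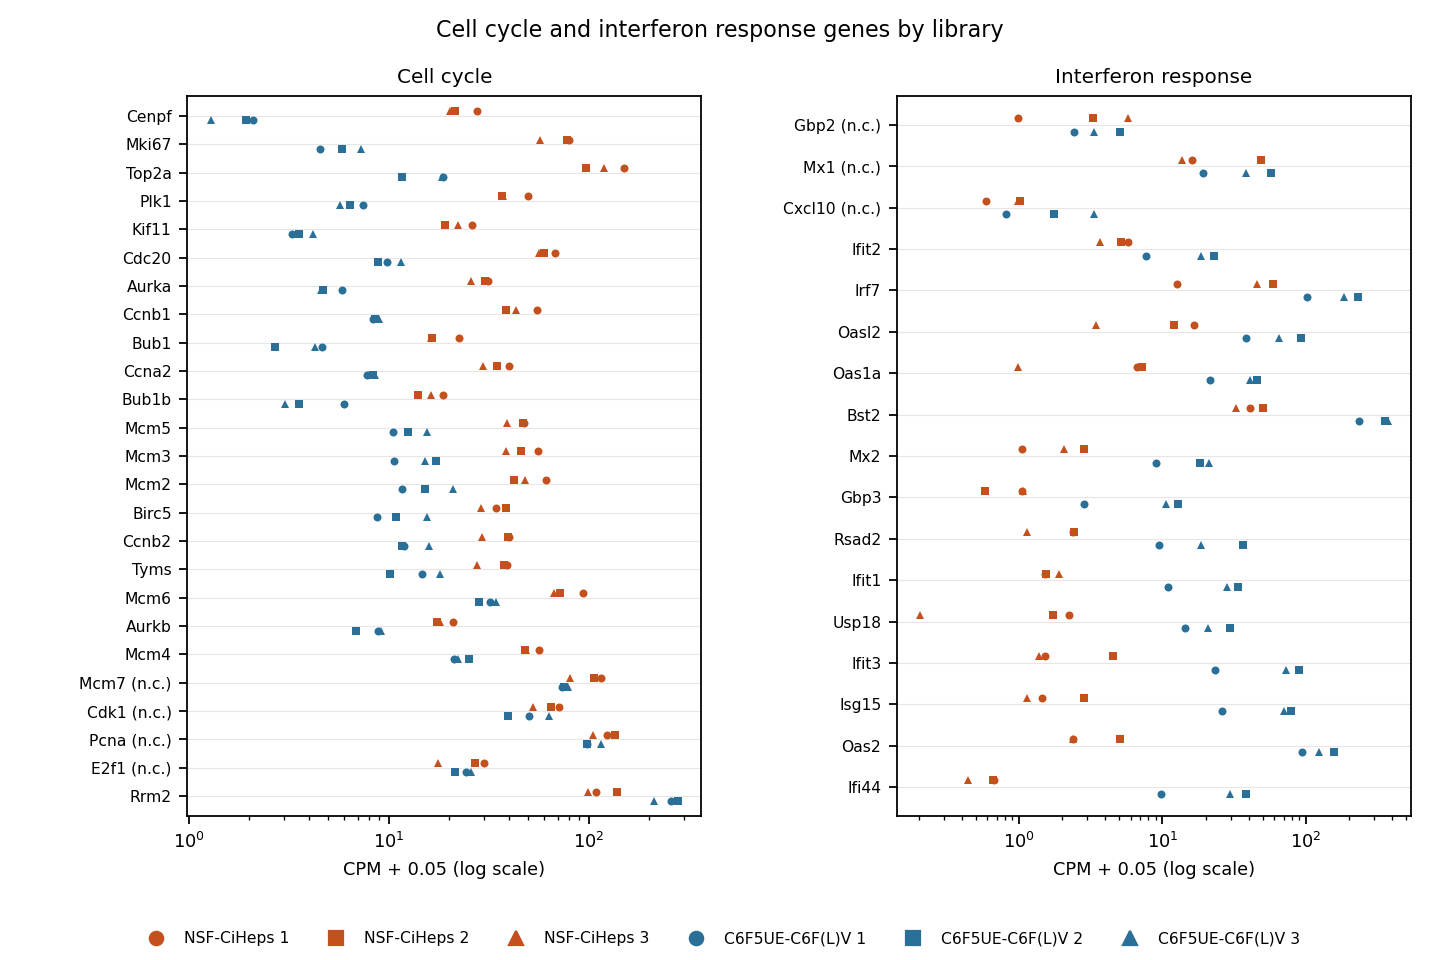
Level of cell cycle genes (left) and interferon response genes (right) in each library, in CPM plus 0.05 on a log axis, with NSF-CiHeps in orange above C6F5UE-C6F(L)V in blue. Genes are ordered by log2 fold change, and n.c. marks those not called. Mki67 lay at 57.2 to 79.9 CPM in NSF-CiHeps and 4.51 to 7.22 CPM in C6F5UE-C6F(L)V, and Isg15 at 1.09 to 2.81 CPM in NSF-CiHeps and 25.9 to 78.9 CPM in C6F5UE-C6F(L)V.

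Interferon response genes were lower in NSF-CiHeps, with 14 of 18 called and 4 that did not pass, and a median log2 fold change of -3.00. Isg15, the ubiquitin-like modifier, had 1.40, 2.81 and 1.09 CPM in NSF-CiHeps, against 25.9, 78.9 and 69.9 CPM in C6F5UE-C6F(L)V (log2 fold change -5.05 ± 0.48, adjusted p = 1.82e-07). Oas2, a sensor of double-stranded RNA, had 2.33, 5.01 and 2.33 CPM in NSF-CiHeps, against 93.7, 158 and 123 CPM in C6F5UE-C6F(L)V (log2 fold change -5.28 ± 0.37, adjusted p = 8.76e-09). Ifi44, an interferon-induced gene of less certain function, had 0.621, 0.615 and 0.389 CPM in NSF-CiHeps, against 9.71, 38.3 and 29.6 CPM in C6F5UE-C6F(L)V (log2 fold change -5.55 ± 0.55, adjusted p = 3.31e-07). Within C6F5UE-C6F(L)V, replicate 1 was the lowest library in each of these 3 genes. It was also the library without the high level of Gm23935, and whether these go together was not tested. Mx1, an antiviral GTPase, had 16.1, 48.6 and 13.6 CPM in NSF-CiHeps, against 19.2, 57.4 and 38.3 CPM in C6F5UE-C6F(L)V and overlapped between the groups (log2 fold change -0.55 ± 0.58, adjusted p = 0.452).

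The promoters of Isg15 and Ifit1 are shown because both hold the core of the interferon-stimulated response element, GAAANNGAAA, in capitals on whichever strand it was found. Ifit1 had 1.47, 1.49 and 1.87 CPM in NSF-CiHeps, against 10.9, 33.6 and 28.04 CPM in C6F5UE-C6F(L)V (log2 fold change -3.90 ± 0.47, adjusted p = 3.02e-06). The sequences are from RefSeq, GRCm38.p6, chr4:156200769-156201068 on the minus strand and chr19:34640639-34640938 on the plus strand, and are written along the strand of the gene.
Isg15: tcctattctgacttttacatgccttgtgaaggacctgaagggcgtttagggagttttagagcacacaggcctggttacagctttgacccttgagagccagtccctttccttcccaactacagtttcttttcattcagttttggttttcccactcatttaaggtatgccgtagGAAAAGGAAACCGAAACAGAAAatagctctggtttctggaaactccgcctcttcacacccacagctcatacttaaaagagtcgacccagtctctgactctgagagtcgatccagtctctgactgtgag
Ifit1: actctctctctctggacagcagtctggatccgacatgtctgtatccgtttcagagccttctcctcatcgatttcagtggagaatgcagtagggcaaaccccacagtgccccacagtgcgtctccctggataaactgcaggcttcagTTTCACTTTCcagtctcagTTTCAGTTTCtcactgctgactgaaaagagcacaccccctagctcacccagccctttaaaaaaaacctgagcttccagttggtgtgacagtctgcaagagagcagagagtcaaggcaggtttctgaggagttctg
Isg15 held 3 overlapping matches and Ifit1 held 2, both on the opposite strand. The element was found in promoters of 9 of the 13 interferon genes with a matched promoter, where any promoter of a gene could count. Among single promoters of this length it was found in 3.44%. Of the 9, 7 were called lower, while Gbp2 and Cxcl10 held it and were not called. Of the 13 with a matched promoter, 11 were called lower, among them all of those without the element.

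Type I collagen, which fibroblasts make in bulk, was low in both groups. Col1a1, the main collagen of fibroblasts, had 0.931, 11.8 and 2.41 CPM in NSF-CiHeps, against 10.3, 11.8 and 8.04 CPM in C6F5UE-C6F(L)V (log2 fold change -1.02 ± 0.77, adjusted p = 0.288), while it averaged 12494 ± 522 CPM in the untreated embryonic fibroblasts of the series (SD, n = 3). Thy1, a fibroblast surface protein, had 0.0776, 2.90 and 0.233 CPM in NSF-CiHeps, against 3.07, 3.78 and 3.20 CPM in C6F5UE-C6F(L)V (log2 fold change -1.70 ± 0.69, adjusted p = 0.0504). Of 26 fibroblast and mesenchyme genes, 6 were higher, 6 lower and 14 did not pass, against 12.3% higher and 16.2% lower over all genes. Col1a2, the partner chain of type I collagen, had 0, 1.93 and 0 CPM in NSF-CiHeps, against 27.6, 20.98 and 36.2 CPM in C6F5UE-C6F(L)V (log2 fold change -5.52 ± 1.01, adjusted p = 0.000221). The filament gene Vim had 806, 1636 and 1459.9 CPM in NSF-CiHeps, against 246, 274 and 266 CPM in C6F5UE-C6F(L)V (log2 fold change 2.31 ± 0.44, adjusted p = 0.000303). Twist1, a mesenchymal transcription factor, had 25.5, 14.1 and 20.2 CPM in NSF-CiHeps, against 2.56, 3.31 and 4.02 CPM in C6F5UE-C6F(L)V (log2 fold change 2.60 ± 0.32, adjusted p = 3.06e-06). Vim and Twist1 were higher without overlap. Lum, a matrix proteoglycan, had 0, 0 and 0.311 CPM in NSF-CiHeps, against 2.30, 2.36 and 1.34 CPM in C6F5UE-C6F(L)V (log2 fold change -4.10 ± 1.01, adjusted p = 0.00275). Prrx1, a homeobox factor of mesenchyme, had 0, 0.966 and 0.311 CPM in NSF-CiHeps, against 2.98, 3.97 and 1.13 CPM in C6F5UE-C6F(L)V (log2 fold change -2.71 ± 0.76, adjusted p = 0.00659). Both were lower. Fn1, the member with the most counts, which hepatocytes also make, had 909, 1013 and 1596 CPM in NSF-CiHeps, against 1234, 998 and 856 CPM in C6F5UE-C6F(L)V (log2 fold change 0.19 ± 0.43, adjusted p = 0.757). Without NSF-CiHeps replicate 3, 3 of the list were higher. Col1a1 was called when NSF-CiHeps replicate 2 was left out (log2 fold change -2.59, adjusted p = 0.0174). Thy1 was called when NSF-CiHeps replicate 2 was left out (log2 fold change -4.34, adjusted p = 0.00025). Thy1 was called with size factors of the RLE method (log2 fold change -1.74, adjusted p = 0.044), with scaling to library size alone (log2 fold change -1.74, adjusted p = 0.0495), with no filter on low counts (log2 fold change -1.63, adjusted p = 0.0456), by DESeq2 (log2 fold change -1.71, adjusted p just under 0.05) and without C6FAE-C6F(L) replicate 4 (log2 fold change -1.72, adjusted p = 0.0313). Col1a2 had a log2 fold change of -4.87 without NSF-CiHeps replicate 1 and -4.88 without NSF-CiHeps replicate 3. Col1a2 was at least 243-fold lower without NSF-CiHeps replicate 2. Lum had a log2 fold change of -3.49 without NSF-CiHeps replicate 1. Prrx1 had a log2 fold change of -2.07 without NSF-CiHeps replicate 1 and -4.04 without NSF-CiHeps replicate 2.

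Markers known from dermal fibroblasts were called in 7 of 17 genes, 4 higher and 3 lower, against 12.3% higher and 16.2% lower over all genes. Col14a1, a collagen of the dermis, had 21.3, 27.4 and 44.6 CPM in NSF-CiHeps, against 1.62, 1.89 and 0.928 CPM in C6F5UE-C6F(L)V (log2 fold change 4.37 ± 0.47, adjusted p = 7.65e-07). Fgf7, a growth factor that fibroblasts make for epithelia, had 17.2, 4.04 and 63.8 CPM in NSF-CiHeps, against 0.511, 0.378 and 0.722 CPM in C6F5UE-C6F(L)V (log2 fold change 5.71 ± 0.82, adjusted p = 1.76e-05). Sfrp2, a Wnt modulator of dermal fibroblasts, was at 0 counts in C6F5UE-C6F(L)V and had 0.776, 1.41 and 4.12 CPM in NSF-CiHeps, at least 22.4-fold higher. Corin, a protease of the dermal papilla, had 0.0776, 0 and 0 CPM in NSF-CiHeps, against 2.38, 1.04 and 0.103 CPM in C6F5UE-C6F(L)V, a share of counts lower by 46.4-fold (95% interval 7.86 to 1878). Crabp1, a retinoic acid binding protein, had 0.466, 0.351 and 0.0777 CPM in NSF-CiHeps, against 2.04, 3.97 and 2.99 CPM in C6F5UE-C6F(L)V (log2 fold change -3.28 ± 0.71, adjusted p = 0.00109). Ly6a, which encodes Sca-1, was the member with the most counts and was not called, with 1461, 2011 and 1185 CPM in NSF-CiHeps, against 1384, 1734 and 1584 CPM in C6F5UE-C6F(L)V (log2 fold change -0.01 ± 0.27, adjusted p = 1). Fgf7 had a log2 fold change of 4.34 without NSF-CiHeps replicate 3. Sfrp2 was at least 11.6-fold higher without NSF-CiHeps replicate 3 and at least 14.2-fold higher without C6F5UE-C6F(L)V replicate 1. Corin was at least 9.51-fold lower without NSF-CiHeps replicate 1, 30.3-fold lower (95% interval 5.14 to 1227) without NSF-CiHeps replicate 3 and 21.97-fold lower (95% interval 3.25 to 939) without C6F5UE-C6F(L)V replicate 1.

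Skin also holds keratinocytes, and Krt5 and Krt14, the keratin pair of their basal layer, were near 0 in both groups, unlike Krt15 of the same list. Krt5, the keratin of the basal layer, had 1.40, 1.23 and 0 CPM in NSF-CiHeps, against 0.341, 0.851 and 0.103 CPM in C6F5UE-C6F(L)V (log2 fold change 0.97 ± 1.37, adjusted p = 0.59), and Krt14, its partner, had 0.155, 1.05 and 0.155 CPM in NSF-CiHeps, against 0.170, 1.13 and 0.516 CPM in C6F5UE-C6F(L)V. Over the 14 basal genes tested the summed level was 758, 700.2 and 462 CPM in NSF-CiHeps, against 495, 500 and 402 CPM in C6F5UE-C6F(L)V, with 3 higher, 1 lower and 10 that did not pass. The shares over all genes were 12.3% higher and 16.2% lower. The part of keratinocytes in the other results was not tested. Trp63, the master factor of stratified epithelium, was at 0 counts in C6F5UE-C6F(L)V and had 0.699, 1.14 and 13.9 CPM in NSF-CiHeps, at least 56.05-fold higher. Krt15 had 32.4, 88.4 and 24.9 CPM in NSF-CiHeps, against 8.09, 8.22 and 2.06 CPM in C6F5UE-C6F(L)V (log2 fold change 2.97 ± 0.72, adjusted p = 0.00239). Krt17, another keratin, was lower with 0.0776, 0.0878 and 0 CPM in NSF-CiHeps, against 5.62, 6.90 and 4.02 CPM in C6F5UE-C6F(L)V, a share of counts lower by 103-fold (95% interval 28.2 to 859). Of 19 genes of the upper layers and the cornified envelope, 5 were higher and 3 lower, with a summed level of 1053, 1336 and 558 CPM in NSF-CiHeps, against 669, 660.5 and 605 CPM in C6F5UE-C6F(L)V. Lor, which encodes the envelope protein loricrin, had 27.9, 9.31 and 12.4 CPM in NSF-CiHeps, against 0.170, 0 and 0.206 CPM in C6F5UE-C6F(L)V (log2 fold change 6.93 ± 0.95, adjusted p = 1.12e-05). Sprr2a1 had 125, 276 and 81.4 CPM in NSF-CiHeps, against 7.67, 19.2 and 30.1 CPM in C6F5UE-C6F(L)V (log2 fold change 3.09 ± 0.50, adjusted p = 0.000138) and belongs to the same near-identical family as Sprr2f, which was lower, so reads may be split between them. Krt10, the keratin of the layers above the basal one, was lower with 2.87, 3.51 and 3.65 CPM in NSF-CiHeps, against 10.2, 12.5 and 10.2 CPM in C6F5UE-C6F(L)V (log2 fold change -1.71 ± 0.51, adjusted p = 0.00941). Grhl3, a factor of barrier formation, was lower with 3.49, 2.28 and 0.933 CPM in NSF-CiHeps, against 8.09, 11.6 and 13.1 CPM in C6F5UE-C6F(L)V (log2 fold change -2.28 ± 0.53, adjusted p = 0.00183). Another lower member was Tgm3, a transglutaminase of the envelope, with 0.0776, 0.0878 and 0 CPM in NSF-CiHeps, against 0.170, 1.23 and 0 CPM in C6F5UE-C6F(L)V, groups that overlap, and a share of counts lower by 8.70-fold (95% interval 2.02 to 78.4). Flg, Krtdap and Calml3 were at 0 counts in all 6 libraries. Without NSF-CiHeps replicate 3, 5 basal genes were higher, and without its replicate 1, 3 upper-layer genes were. Trp63 was at least 9.82-fold higher without NSF-CiHeps replicate 3 and at least 35.5-fold higher without C6F5UE-C6F(L)V replicate 1. Krt15 had a log2 fold change of 2.21 without NSF-CiHeps replicate 2. Krt17 was 67.5-fold lower (95% interval 18.4 to 561) without NSF-CiHeps replicate 3. Lor was 188-fold higher (95% interval 51.9 to 1557) without C6F5UE-C6F(L)V replicate 3. Sprr2a1 had a log2 fold change of 2.44 without NSF-CiHeps replicate 2. Tgm3 was not called when NSF-CiHeps replicate 1, 2 or 3 or C6F5UE-C6F(L)V replicate 2 was left out (log2 fold change -3.27 to -0.63, adjusted p from 0.0621 to 0.72). Tgm3 was not called with no filter on low counts (log2 fold change -2.80, adjusted p = 0.0533). Tgm3 was 5.68-fold lower (95% interval 1.32 to 51.2) without NSF-CiHeps replicate 3.

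Hox genes, whose products give cells their place along the body axis, differed by cluster. Of 34 tested, 12 were higher and 5 lower in NSF-CiHeps, and 5 of the 34 had 3 counts or fewer in both groups. The background was 12.3% higher and 16.2% lower over all genes, so the share of lower Hox genes was near it. The 5 lower genes were Hoxb2, Hoxb3, Hoxb4, Hoxb7 and Hoxb8. The 12 higher genes were 6 of the Hoxa cluster, 2 of the Hoxc cluster and 4 of the Hoxd cluster. Hoxb4 had 10.2, 8.17 and 7.07 CPM in NSF-CiHeps, against 52.04, 51.7 and 46.1 CPM in C6F5UE-C6F(L)V (log2 fold change -2.56 ± 0.19, adjusted p = 1.58e-08). Hoxb8 had 2.10, 2.90 and 4.74 CPM in NSF-CiHeps, against 19.2, 20.5 and 20.3 CPM in C6F5UE-C6F(L)V (log2 fold change -2.62 ± 0.26, adjusted p = 3.07e-07). Both were lower without overlap. On the other side, Hoxa9 had 13.97, 24.2 and 29.6 CPM in NSF-CiHeps, against 0.511, 0.473 and 1.86 CPM in C6F5UE-C6F(L)V (log2 fold change 4.60 ± 0.58, adjusted p = 6.68e-06). Hoxc9 had 23.7, 43.3 and 27.3 CPM in NSF-CiHeps, against 4.00, 4.44 and 4.33 CPM in C6F5UE-C6F(L)V (log2 fold change 2.88 ± 0.26, adjusted p = 1.98e-07). Hoxd8 had 17.2, 8.43 and 4.90 CPM in NSF-CiHeps, against 1.19, 0.945 and 0.825 CPM in C6F5UE-C6F(L)V (log2 fold change 3.34 ± 0.47, adjusted p = 1.61e-05). Several genes next to these were not called. Hoxb9 had 15.1, 30.5 and 9.17 CPM in NSF-CiHeps, against 17.03, 18.998 and 16.9 CPM in C6F5UE-C6F(L)V (log2 fold change 0.04 ± 0.29, adjusted p = 0.945), and Hoxc6, the member with the most counts, had 70.6, 93.6 and 81.3 CPM in NSF-CiHeps, against 47.6, 55.01 and 51.1 CPM in C6F5UE-C6F(L)V, without overlap but short of the fold for a call (log2 fold change 0.67 ± 0.15, adjusted p = 0.00136). In the fit of the 6 libraries alone with the replicate number as a block, 7 Hox genes were higher, against 12. Hoxa9 had a log2 fold change of 5.49 without C6F5UE-C6F(L)V replicate 3.

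**Figure D5:**
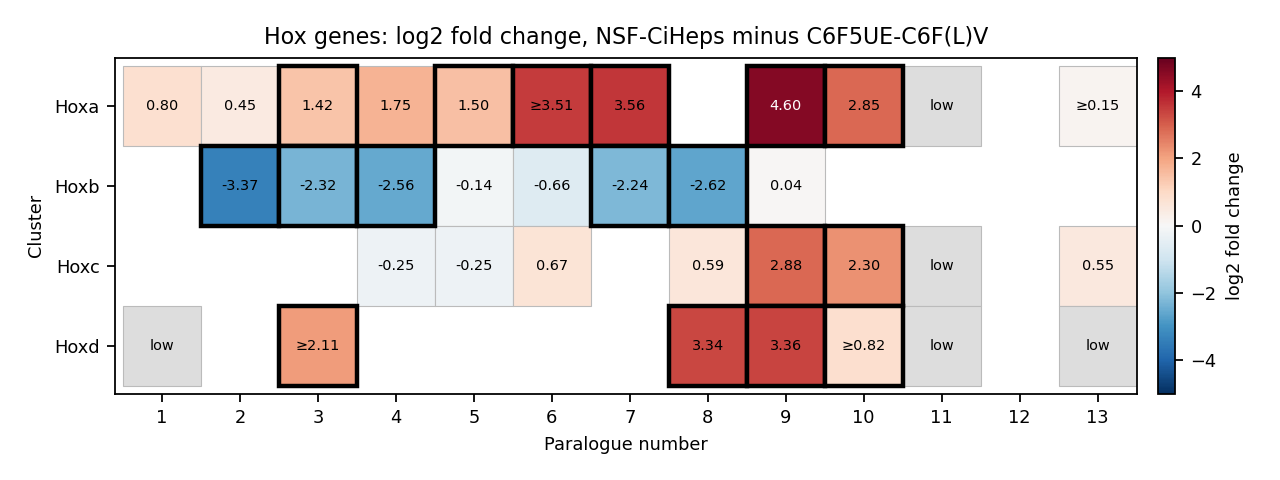
Log2 fold change of each tested Hox gene, NSF-CiHeps minus C6F5UE-C6F(L)V, by cluster (rows) and paralogue number (columns), with red for higher and blue for lower in NSF-CiHeps. Thick frames mark called genes, grey cells have 3 counts or fewer in both groups, empty cells were not tested, and the sign ≥ marks a lower bound where C6F5UE-C6F(L)V was at 0 counts. Hoxb genes with a frame are blue and those of the other clusters red.

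Other patterning factors of limb and mesenchyme were called in both directions, with 7 of 35 higher, 5 lower and 9 at 3 counts or fewer in both groups. The background over all genes was 12.3% higher and 16.2% lower. Tbx18, a T-box factor of limb and body wall mesenchyme, had 14.4, 14.1 and 24.6 CPM in NSF-CiHeps, against 1.87, 2.17 and 1.65 CPM in C6F5UE-C6F(L)V (log2 fold change 3.21 ± 0.40, adjusted p = 5.48e-06). Pax9, known from teeth, limb and pharyngeal pouches, had 15.4, 9.22 and 18.9 CPM in NSF-CiHeps, against 0.852, 1.80 and 2.58 CPM in C6F5UE-C6F(L)V (log2 fold change 3.06 ± 0.52, adjusted p = 0.000112). Pitx1, the factor of the hind limb and the member with the most counts, had 72.1, 79.2 and 60.2 CPM in NSF-CiHeps, against 20.4, 24.4 and 26.9 CPM in C6F5UE-C6F(L)V (log2 fold change 1.56 ± 0.27, adjusted p = 0.000135). Tbx15, a factor of dermis and skeleton, had 32.1, 9.75 and 1.01 CPM in NSF-CiHeps, against 0.0852, 0.189 and 0 CPM in C6F5UE-C6F(L)V, a share of counts higher by 154-fold (95% interval 52.5 to 751). Tbx1, a factor of the pharynx, was lower with 0.0776, 0.176 and 0.700 CPM in NSF-CiHeps, against 4.00, 3.31 and 2.27 CPM in C6F5UE-C6F(L)V (log2 fold change -3.27 ± 0.74, adjusted p = 0.00131). Tbx5 and Tbx4, which mark the fore and hind limb, were at 0 counts in all 6 libraries. In the fit of the 6 libraries alone, 4 members were higher. Tbx15 was 54.6-fold higher (95% interval 18.2 to 268) without NSF-CiHeps replicate 1 and 310.0-fold higher (95% interval 55.4 to 12268) without C6F5UE-C6F(L)V replicate 2. Tbx1 was 26.3-fold lower (95% interval 8.75 to 129) without NSF-CiHeps replicate 3.

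Imprinted genes, which are expressed from the allele of a single parent, were called in 16 of 27 cases, 6 higher and 10 lower. For all genes tested the shares were 12.3% higher and 16.2% lower. H19 (ENSMUSG00000000031, chromosome 7, 142575529 to 142578143, minus strand), the maternally expressed RNA beside Igf2, had 166, 130.3 and 82.5 CPM in NSF-CiHeps, against 1166, 1102 and 1595 CPM in C6F5UE-C6F(L)V (log2 fold change -3.35 ± 0.47, adjusted p = 1.32e-05). Igf2, the fetal growth factor, had 0.310, 0.176 and 0.544 CPM in NSF-CiHeps, against 5.03, 4.91 and 11.8 CPM in C6F5UE-C6F(L)V (log2 fold change -4.32 ± 0.84, adjusted p = 0.000441). Peg3, a paternally expressed zinc finger gene, had 481, 481 and 924 CPM in NSF-CiHeps, against 1462, 1179.8 and 1355 CPM in C6F5UE-C6F(L)V (log2 fold change -1.08 ± 0.31, adjusted p = 0.00704). Igf2r, the receptor that clears IGF2, had 611, 503 and 717 CPM in NSF-CiHeps, against 203, 195 and 154 CPM in C6F5UE-C6F(L)V (log2 fold change 1.73 ± 0.18, adjusted p = 4.57e-07), and the antisense RNA within it, Airn, had 8.62, 8.87 and 14.6 CPM in NSF-CiHeps, against 25.7, 18.998 and 34.95 CPM in C6F5UE-C6F(L)V (log2 fold change -1.31 ± 0.23, adjusted p = 0.000148). Igf2r and Airn moved in opposite directions, and the strand setting of the counting is not given, so reads from overlapping parts of the 2 genes cannot be assigned with certainty. Nnat, a small membrane protein gene, had 5.59, 11.7 and 46.6 CPM in NSF-CiHeps, against 1.62, 3.59 and 2.58 CPM in C6F5UE-C6F(L)V (log2 fold change 3.04 ± 0.59, adjusted p = 0.00038). Without NSF-CiHeps replicate 2, or in the fit of the 6 libraries alone, 3 members were higher. Peg3 was not called when NSF-CiHeps replicate 1 or 2 or C6F5UE-C6F(L)V replicate 1 was left out (log2 fold change -0.97 to -0.87, adjusted p from 0.028 to 0.044). Peg3 was not called with no filter on low counts (log2 fold change -0.997, adjusted p = 0.00582). Nnat had a log2 fold change of 1.77 without NSF-CiHeps replicate 3.

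Genes of the sex chromosomes differed between the groups in all 5 cases tested. Xist, transcribed from the inactive X chromosome, had 53.9, 445 and 344 CPM in NSF-CiHeps, against 1435, 1362 and 1303 CPM in C6F5UE-C6F(L)V (log2 fold change -2.28 ± 0.53, adjusted p = 0.00162). The Y-linked gene Ddx3y had 52.6, 14.8 and 32.3 CPM in NSF-CiHeps, against 5.11, 5.10 and 3.30 CPM in C6F5UE-C6F(L)V (log2 fold change 2.88 ± 0.53, adjusted p = 0.000242), and Eif2s3y had 72.1, 28.2 and 42.98 CPM in NSF-CiHeps, against 12.2, 9.45 and 10.6 CPM in C6F5UE-C6F(L)V (log2 fold change 2.15 ± 0.52, adjusted p = 0.00236). Xist and Y-linked transcripts were both found in every library, and within NSF-CiHeps replicate 1 was lowest in Xist and highest in the Y-linked genes. The sex of the animals is not in the labels, so a difference in the mix of sexes cannot be told apart from the difference in origin.

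Most markers of other cell types that such cultures could hold were near 0, and their part in the other results was not tested. Of 13 macrophage genes, 6 were at 0 counts in all libraries, among them C1qa, Adgre1 and Tyrobp, and Csf1r, called lower, had 1.09, 1.67 and 2.18 CPM in NSF-CiHeps, against 3.49, 5.48 and 2.68 CPM in C6F5UE-C6F(L)V (log2 fold change -1.24 ± 0.27, adjusted p = 0.00108). The summed level of the list was 183, 194.8 and 91.2 CPM in NSF-CiHeps, against 102, 109 and 124 CPM in C6F5UE-C6F(L)V, and most of it was Cd14, which other cells express too. Among 9 endothelial genes, 4 were called higher, at low levels: the summed level was 43.7, 8.34 and 4.66 CPM in NSF-CiHeps, against 1.70, 1.23 and 2.27 CPM in C6F5UE-C6F(L)V. Vwf made up most of it with 34.8, 5.97 and 2.95 CPM in NSF-CiHeps, against 1.11, 0 and 2.06 CPM in C6F5UE-C6F(L)V (log2 fold change 3.80 ± 1.08, adjusted p = 0.00746), and Emcn and Erg were at 0 counts. These 4 calls were lost without NSF-CiHeps replicate 1. Adipocyte genes as a set were not near 0. Their summed level was 135, 281 and 134 CPM in NSF-CiHeps, against 464, 414 and 402 CPM in C6F5UE-C6F(L)V. Of the 7 tested, 2 were lower and 5 did not pass, against 16.2% lower over all genes. The adipocyte fatty acid carrier Fabp4 had 1.24, 75.2 and 8.16 CPM in NSF-CiHeps, against 295, 269.8 and 251 CPM in C6F5UE-C6F(L)V (log2 fold change -3.28 ± 0.81, adjusted p = 0.00278), while Cfd, another adipocyte gene, was at 0 counts in all 6 libraries. In the lung gene list, replicate 2 of NSF-CiHeps stood apart. Scgb1a1, the secretoglobin of club cells, had 0.155, 65.3 and 1.94 CPM in NSF-CiHeps, against 12.4, 7.94 and 17.01 CPM in C6F5UE-C6F(L)V (log2 fold change 0.85 ± 1.16, adjusted p = 0.578). Of 15 extraembryonic endoderm genes, which the reprogramming medium is named for, 4 were lower and 11 did not pass. The lower share over all genes was 16.2%. Gata4 had 38.4, 22.6 and 29.6 CPM in NSF-CiHeps, against 22.4, 17.9 and 19.9 CPM in C6F5UE-C6F(L)V (log2 fold change 0.59 ± 0.33, adjusted p = 0.143), and Sox17, an endoderm factor, had 59.9, 26.6 and 8.16 CPM in NSF-CiHeps, against 13.8, 21.9 and 12.99 CPM in C6F5UE-C6F(L)V (log2 fold change 0.96 ± 0.52, adjusted p = 0.134). Csf1r was not called when NSF-CiHeps replicate 1 or C6F5UE-C6F(L)V replicate 2 was left out (log2 fold change -0.96 to -0.87, adjusted p from 0.0103 to 0.013). Vwf was not called when NSF-CiHeps replicate 1 was left out (log2 fold change 2.12, adjusted p = 0.0994). Vwf had a log2 fold change of 4.64 without C6F5UE-C6F(L)V replicate 3. Fabp4 had a log2 fold change of -2.68 without NSF-CiHeps replicate 1 and -5.85 without NSF-CiHeps replicate 2. Scgb1a1 was called when NSF-CiHeps replicate 2 was left out (log2 fold change -3.56, adjusted p = 0.0081). Sox17 was called when NSF-CiHeps replicate 3 was left out (log2 fold change 1.46, adjusted p = 0.00936).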

How the data were processed

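Counts per gene were deposited by the authors in 3 tables that also give gene length, with FPKM in separate tables, for 21 libraries in 7 groups. Per the submitters' processing notes HISAT2 and the mouse build GRCm38 (mm10) were used, while for the counter, its strand setting and the versions nothing was given in the sources used here. The deposited FPKM values of NSF-CiHeps were checked against their counts and not used further, and the deposited gene length entered no test.

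The counts of the 54532 genes were joined by gene identifier. Genes were kept by filterByExpr of edgeR 4.0.16 (R 4.3.3, minimum count 10, minimum total 15), scaled by the trimmed mean of M values, and fitted with edgeR's quasi-likelihood model over all 21 libraries, which share 1 estimate of the spread with 14 residual degrees of freedom. The contrast was NSF-CiHeps minus C6F5UE-C6F(L)V, with a Benjamini-Hochberg adjustment over 18605 genes. Values after ±, unless SD is named, are the size of the log2 fold change divided by the square root of its F statistic. They approximate a standard error, and least well for genes with few counts in a group. Where a group held 0 counts, a lower bound of the fold was set with 3 counts over the group. Where it held 1 to 3, the ratio of count shares stands with an exact 95% binomial interval, which covers counting error only. On simulated counts at these depths the test recovered 87 of 100 genes changed 4-fold and 88 of 100 changed 8-fold, with 4 wrong calls among 17969 unchanged genes. The changed genes were drawn from those at 1 CPM or more. Both groups were given the same spread, whereas NSF-CiHeps varied more than C6F5UE-C6F(L)V in the data. The simulation therefore gives no rate of wrong calls for this comparison. DESeq2 1.42.0, other scalings, no filter, a replicate block and fits without single libraries were tried as alternatives.

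Promoter sequences are from RefSeq on GRCm38.p6. Members and gene lists were chosen with earlier results of these data known. The genes named were fixed markers, the 12 largest rises and falls above 10 CPM without overlap, leaving out predicted genes and pseudogenes, and for each list the called members with the 3 largest rises and falls and the member with the most counts, not all of which are given with values. Some list members that enter the counts are not reported here by name. Outside that rule, and chosen after their values were seen, were Acta2, Airn, Apob, Arg1, Asl, Ass1, Axin2, Cps1, Cyp2c29, Cyp3a13, Cyp7a1, Cyr61, Eif2s3y, Errfi1, Fkbp5, Gata4, Gkn1, Gkn2, Gm23935, Hoxb9, Hoxc9, Hoxd8, Ifit1, Igf2r, Itih2, Krt14, Krt7, Lgals4, Mx1, Neat1, Nnat, Notum, Pcna, Plk1, Rarb, Rpl26, Sox17, Sox9, Sp5, Ttr, Vegfa, Vil1, Vim, mt-Co1 and mt-Nd1.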

Additional observations from a re-analysis of the deposited data

How the results depend on the processing

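Over 15 other settings the number of genes called stayed within 1.5 times the value reported, and no called gene was called in the other direction in any of them. Genes higher and lower numbered 2207 and 3094 with the size factors of the RLE method, 2207 and 3068 with scaling to library size alone, 2562 and 2696 with no filter on low counts over 32331 genes, and 2283 and 3082 by DESeq2, which gave no adjusted p for 58 genes. In a fit of the 6 libraries alone they numbered 1889 and 2422 over 14536 genes. With each of the 6 libraries left out in turn they ranged from 2078 to 2308 and from 2611 to 2953. Without C6FAE-C6F(L) replicate 4 they numbered 2374 and 3156. A fit to nuclear protein-coding genes, chosen after seeing the data because mitochondrial and non-coding genes moved with the group, gave 1881 and 2375 of 15450 genes. The replicate number as a block gave 2307 and 3076 genes in all libraries and 1739 and 2311 in the 6 libraries. Deviations from the group means of libraries with the same number correlated by -0.00216, -0.0896 and -0.0282. Libraries with different numbers correlated by -0.0441 to 0.0807. These values gave no sign of pairing by number, but with so few libraries per group they cannot exclude it. Under the block in all libraries Krt7 (log2 fold change -1.45, adjusted p = 0.042) and Thy1 (log2 fold change -1.72, adjusted p = 0.0384) gained a call and Tgm3 (log2 fold change -2.77, adjusted p = 0.0609) lost it, and under the block in 6 libraries Csf1r (log2 fold change -1.21, adjusted p = 0.0907), Gm23935 (log2 fold change -3.60, adjusted p = 0.373), Muc5ac (log2 fold change 3.26, adjusted p = 0.0517), Prrx1 (log2 fold change -2.84, adjusted p = 0.0543) and Vwf (log2 fold change 3.58, adjusted p = 0.0554) lost it, and no replicate number in the labels is said to mark a shared culture or day.

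Of 175 genes given with values, 142 kept their direction and their side of the threshold under every setting that gave a value. DESeq2 gave no adjusted p for Car1, Col1a1, Col1a2, Tff3 and Tgfbi. The log2 fold changes below changed sign, none of them called in the fit reported, and the cause was not tested. Apob ranged from -0.33 to 1.18 with single libraries left out. Cdh1 ranged from -0.0562 to 0.81 with single libraries left out. Cdkn1a ranged from -0.0606 to 0.25 with single libraries left out. Cyp2c29 ranged from -0.12 to 1.44 with single libraries left out and was -0.12 with the replicate block and -0.13 with the block in 6 libraries. Cyp3a13 ranged from -0.21 to 0.34 with single libraries left out. Cyr61 ranged from -0.37 to 0.0224 with single libraries left out. Fkbp5 ranged from -0.31 to 0.18 with single libraries left out. Fn1 ranged from -0.0599 to 0.39 with single libraries left out. Hoxb9 ranged from -0.55 to 0.40 with single libraries left out and was -0.0116 with the replicate block, -0.0995 with the block in 6 libraries and -0.0085 over nuclear protein-coding genes. Krt14 ranged from -1.87 to 0.43 with single libraries left out. Krt18 ranged from -0.77 to 0.14 with single libraries left out. Ly6a ranged from -0.25 to 0.18 with single libraries left out and was 0.0667 with no filter. Scgb1a1 ranged from -3.56 to 1.46 with single libraries left out and was -1.84 with the block in 6 libraries. At these depths, differences in genes with a few counts per library may not have been detectable.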

Other observations

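Genes of lipid synthesis were higher in part. Fasn, which makes palmitate, had 402, 300.4 and 311 CPM in NSF-CiHeps, against 102, 89.7 and 93.6 CPM in C6F5UE-C6F(L)V (log2 fold change 1.83 ± 0.15, adjusted p = 5.91e-08). Me1, which supplies the reducing power for it, had 208, 220.4 and 249 CPM in NSF-CiHeps, against 69.9, 70.4 and 82.3 CPM in C6F5UE-C6F(L)V (log2 fold change 1.61 ± 0.20, adjusted p = 5.02e-06). Scd2, a desaturase and the member with the most counts, had 1581, 1023 and 1327 CPM in NSF-CiHeps, against 601, 629 and 533 CPM in C6F5UE-C6F(L)V (log2 fold change 1.16 ± 0.14, adjusted p = 3.66e-06). Of 24 genes of cholesterol and fatty acid synthesis, 8 were higher, 2 lower and 14 did not pass. By comparison, 12.3% of all genes were higher and 16.2% lower.

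Several hypoxia targets were lower, and the glycolytic enzymes of the list were not called. Of 15 genes tested, 6 were lower and 9 did not pass, against 16.2% lower over all genes. Vegfa, the vascular growth factor, had 231, 179 and 311 CPM in NSF-CiHeps, against 1375, 1337 and 1037 CPM in C6F5UE-C6F(L)V (log2 fold change -2.38 ± 0.28, adjusted p = 2.01e-06). Bnip3, which removes mitochondria in low oxygen, had 46.2, 34.3 and 39.6 CPM in NSF-CiHeps, against 277, 324 and 190.0 CPM in C6F5UE-C6F(L)V (log2 fold change -2.72 ± 0.25, adjusted p = 1.42e-07). Ankrd37 had 2.10, 2.99 and 3.19 CPM in NSF-CiHeps, against 62.3, 76.5 and 34.8 CPM in C6F5UE-C6F(L)V (log2 fold change -4.39 ± 0.49, adjusted p = 1.11e-06). These 3 did not overlap between the groups. Adm, which encodes the vessel-widening peptide adrenomedullin, had 1.71, 2.99 and 1.32 CPM in NSF-CiHeps, against 25.6, 33.7 and 15.3 CPM in C6F5UE-C6F(L)V (log2 fold change -3.64 ± 0.30, adjusted p = 3.81e-08), and was lower as well. Aldoa, a glycolytic enzyme and the member with the most counts, had 1700.3, 2039 and 1858 CPM in NSF-CiHeps, against 1251, 1417 and 1128 CPM in C6F5UE-C6F(L)V, short of the fold for a call (log2 fold change 0.56 ± 0.13, adjusted p = 0.00194). Of 16 targets of the unfolded protein response and of amino acid shortage, 3 were higher and 1 lower. Over all genes 12.3% were higher and 16.2% lower, so this list stood below the background in lower genes and above it in higher ones. Phgdh, the entry enzyme of serine synthesis, had 419.7, 356 and 256 CPM in NSF-CiHeps, against 115, 122 and 105 CPM in C6F5UE-C6F(L)V (log2 fold change 1.59 ± 0.15, adjusted p = 1.55e-07), and Herpud1, a protein of endoplasmic reticulum degradation, had 134, 157 and 81.9 CPM in NSF-CiHeps, against 472, 426 and 446 CPM in C6F5UE-C6F(L)V (log2 fold change -1.85 ± 0.19, adjusted p = 5.81e-07).

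Some differences lie in genes chosen after their values were seen. Of 24 genes of the mitochondrial genome, 20 were higher in NSF-CiHeps. mt-Nd1, a subunit of respiratory complex I, had 2836, 3353 and 3301 CPM in NSF-CiHeps, against 172, 167 and 359 CPM in C6F5UE-C6F(L)V (log2 fold change 3.77 ± 0.25, adjusted p = 3.81e-09), and mt-Co1, a subunit of complex IV, had 9652, 9454 and 10545 CPM in NSF-CiHeps, against 2572, 2666 and 4973 CPM in C6F5UE-C6F(L)V (log2 fold change 1.54 ± 0.24, adjusted p = 4.69e-05). Rpl26, a ribosomal protein gene, had 10.8, 15.5 and 10.8 CPM in NSF-CiHeps, against 1104, 1111 and 1132 CPM in C6F5UE-C6F(L)V (log2 fold change -6.50 ± 0.55, adjusted p = 5.67e-08). Ribosomal protein genes have many near-identical processed copies, so its counts are uncertain. Of the 81 such genes tested, 3 were higher and 13 lower, which is 3.7% and 16%. Over all genes 12.3% were higher and 16.2% lower, so the lower share was at the background. Gene lengths and classes were the same in all count tables for 54532 genes, but whether the reads were counted alike for both groups is not given in the sources used here and was not tested. The nuclear RNA Neat1 had 1487, 2135 and 2382 CPM in NSF-CiHeps, against 6194, 6046 and 6759.8 CPM in C6F5UE-C6F(L)V (log2 fold change -1.66 ± 0.25, adjusted p = 3.63e-05). Of 538 antisense genes, 15 were higher and 165 lower.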
